A study of Danio rerio with 19 samples.

Results

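Wild-type neural crest cells of the zebrafish pharyngeal arches were compared with the remaining cells that carry a sox10 reporter. The comparison used 6 of the 19 RNA-sequencing libraries of the series, chosen by their labels but with earlier results of these data known. A group of 3 libraries held cells positive for both fli1a:GFP and sox10:DsRed from wild-type, untreated embryos, labelled as pharyngeal arches at 36 hours post fertilization (hpf), and these are called all-arch cells. The other 3 libraries held cells with sox10:DsRed but no fli1a:GFP from wild-type, untreated embryos, labelled as mixed cells with ear, and these are called sox10-only cells. Both transgenes are named after the genes whose regulatory DNA drives them, so a cell was sorted by reporter activity and not by its own fli1a or sox10 RNA. The stage labels of sox10-only replicates 1, 2 and 3 read 20, 28 and 36 hpf, whereas the series design describes them as replicates collected along with the arch cells at 36 hpf. Stage label and replicate number cannot be told apart among the sox10-only libraries. Another kind of wild-type library, 3 of cells with fli1a:GFP but no sox10:DsRed, was not itself compared. It shared the estimate of spread and counted in the mean level that decided which genes were tested. It also entered most of the alternative fits. How many embryos were pooled, and whether each replicate is its own clutch, no label says. The p-values below therefore measure library-to-library spread, which may be technical.

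Neural crest cells leave the dorsal neural tube and build many tissues. Those that enter the pharyngeal arches become ectomesenchyme, the source of facial cartilage, bone and connective tissue, and switch off sox10 while they switch on mesenchymal regulators of the Twist, Dlx, Prrx and Fox families. Crest cells elsewhere give rise to pigment cells, glia and peripheral neurons, many of which keep sox10 on, and sox10 is also expressed in the ear vesicle. In zebrafish the fli1a reporter marks arch crest as well as vessels and some blood cells, so the paired reporters separate arch crest from both the other sox10 lineages and the vasculature.

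The reporters' own genes were read first, fli1a as a check of the labels and neither gene as a finding. The gene fli1a, an Ets factor, stood at 41.6, 43.9 and 44.5 TPM in all-arch cells and 2.11, 2.03 and 2.33 TPM in sox10-only cells (replicates 1, 2 and 3 in that order, as throughout). The RNA of sox10 was at 12.6, 46.2 and 19.3 TPM in all-arch cells and 710.5, 833 and 909 TPM in sox10-only cells. Both genes separated the groups without overlap, fli1a in the labelled direction. Both groups were sorted as positive for sox10:DsRed, so the labels give no direction for sox10 RNA and sox10 does not check them. Between 12516 and 13610 genes reached 1 TPM (a transcript level scaled for gene length and library size) in all-arch libraries and between 13589 and 15212 in sox10-only libraries, and sequencing depth is unknown because TPM keeps none. Some libraries stood apart. All-arch replicate 2 carried more pigment RNA than its partners, with a summed level of 1013.1 TPM over 16 xanthophore genes against 172 and 218 TPM in replicates 1 and 3, and 206 to 454 TPM in the 10 other arch-type libraries of the series. That is still small beside 13626, 32345 and 10485 TPM in sox10-only cells. The same library held most red blood cell RNA, with globin genes taking 1.37% of its TPM and at most 0.192% of any other of the 6. All-arch replicate 3 was highest in neutrophil lysozyme, with lyz at 44.4, 239 and 1449.6 TPM across the all-arch replicates. Sox10-only replicate 2 was low in ear genes and in epithelial genes such as epcam, cldnb and krt5. It was the highest of its group for the skin keratin gene krt4, at 242, 1414 and 701 TPM in sox10-only cells. Sox10-only replicate 3 was high in cartilage-type and notochord-type collagens and lens crystallins. The part of these libraries in each result below was not tested beyond the values given without them.

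**Figure D1:**
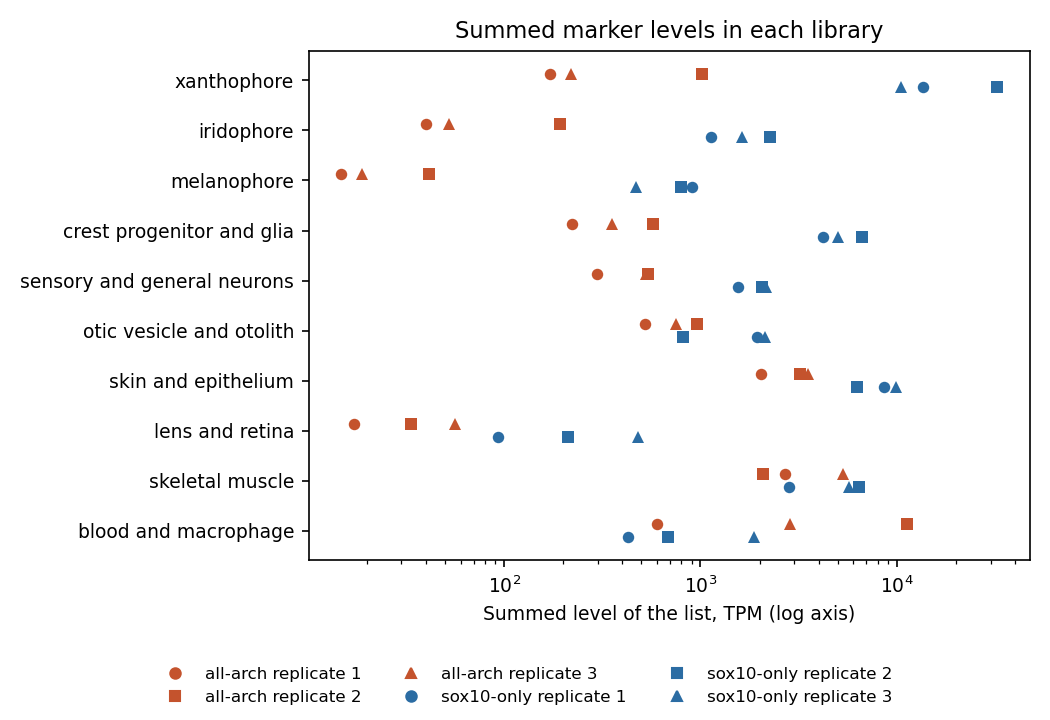
Summed TPM (log axis) of 10 gene lists in 3 all-arch and 3 sox10-only libraries (symbol by replicate). Pigment, glial and neuronal sums are higher in every sox10-only than any all-arch library. Muscle and blood sums overlap. Ear sums overlap in replicate 2 (961 TPM all-arch, 811 TPM sox10-only), only with dlx3b counted (455 and 42.6 TPM). All-arch replicate 2 stands above its partners in the xanthophore sum.

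Of 14270 genes with a mean of at least 1 TPM, 485 (3.40%) were higher and 1430 (10.02%) lower in all-arch than in sox10-only cells at a limma adjusted p under 0.05. Limma fits a linear model to every gene, here on log2(TPM + 1), and shares information on the spread between genes. All differences are given on that log2 scale as all-arch minus sox10-only, which understates changes of low genes. With the replicate number as a block, 855 (5.99%) were higher and 2080 (14.6%) lower. With the sox10-only library labelled 36 hpf as the only library of its group, 212 (1.49%) were higher and 1241 (8.70%) lower. That setting assumes that the lone library varies like the other groups. The share of called genes that was higher was 25.3%, and it became 35.5% after median-of-ratios rescaling and 47.0% after quantile normalization, which moved the median of all genes from -0.04 to 0.14. A total of 1536 genes (10.8%) lay above and 2946 (20.6%) below without overlap between the libraries. In bulk RNA, fewer cells of a type and less RNA per cell cannot be told apart, and this holds for every result that follows.

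**Figure D2:**
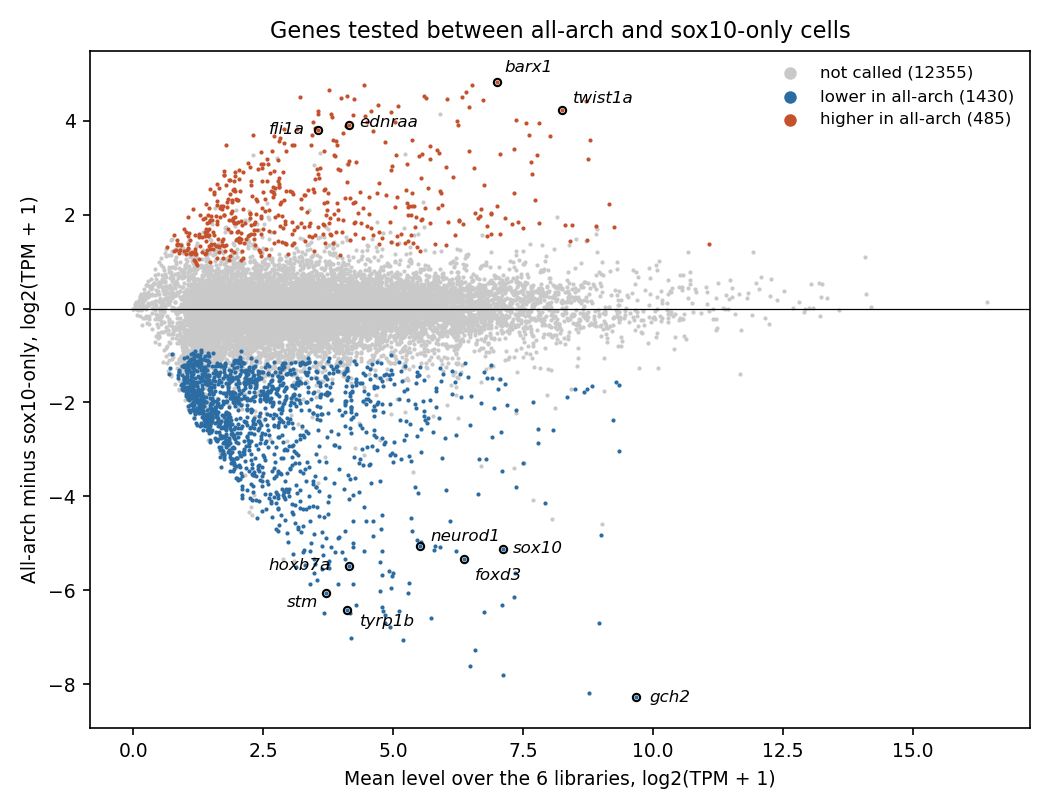
Log2 difference (all-arch minus sox10-only) against the mean level in log2(TPM + 1), 1 point per gene tested. The 485 genes called higher and 1430 called lower are coloured, the other genes are grey, and the largest differences extend further downwards (gch2 at -8.28) than upwards (barx1 at 4.83).

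A total of 36 gene lists were used to order the comparison, with 913 of 940 members found in the table and 759 reaching the minimum for testing. The minimum is a mean of 1 TPM over the 9 libraries fitted, and genes that sit in several lists count in each. Each count of called members below is to be read against the 3.40% and 10.02% of all genes called higher and lower. The lists were chosen with earlier results of these data known, so the counts are descriptive and not independent of that choice.

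**Figure D3:**
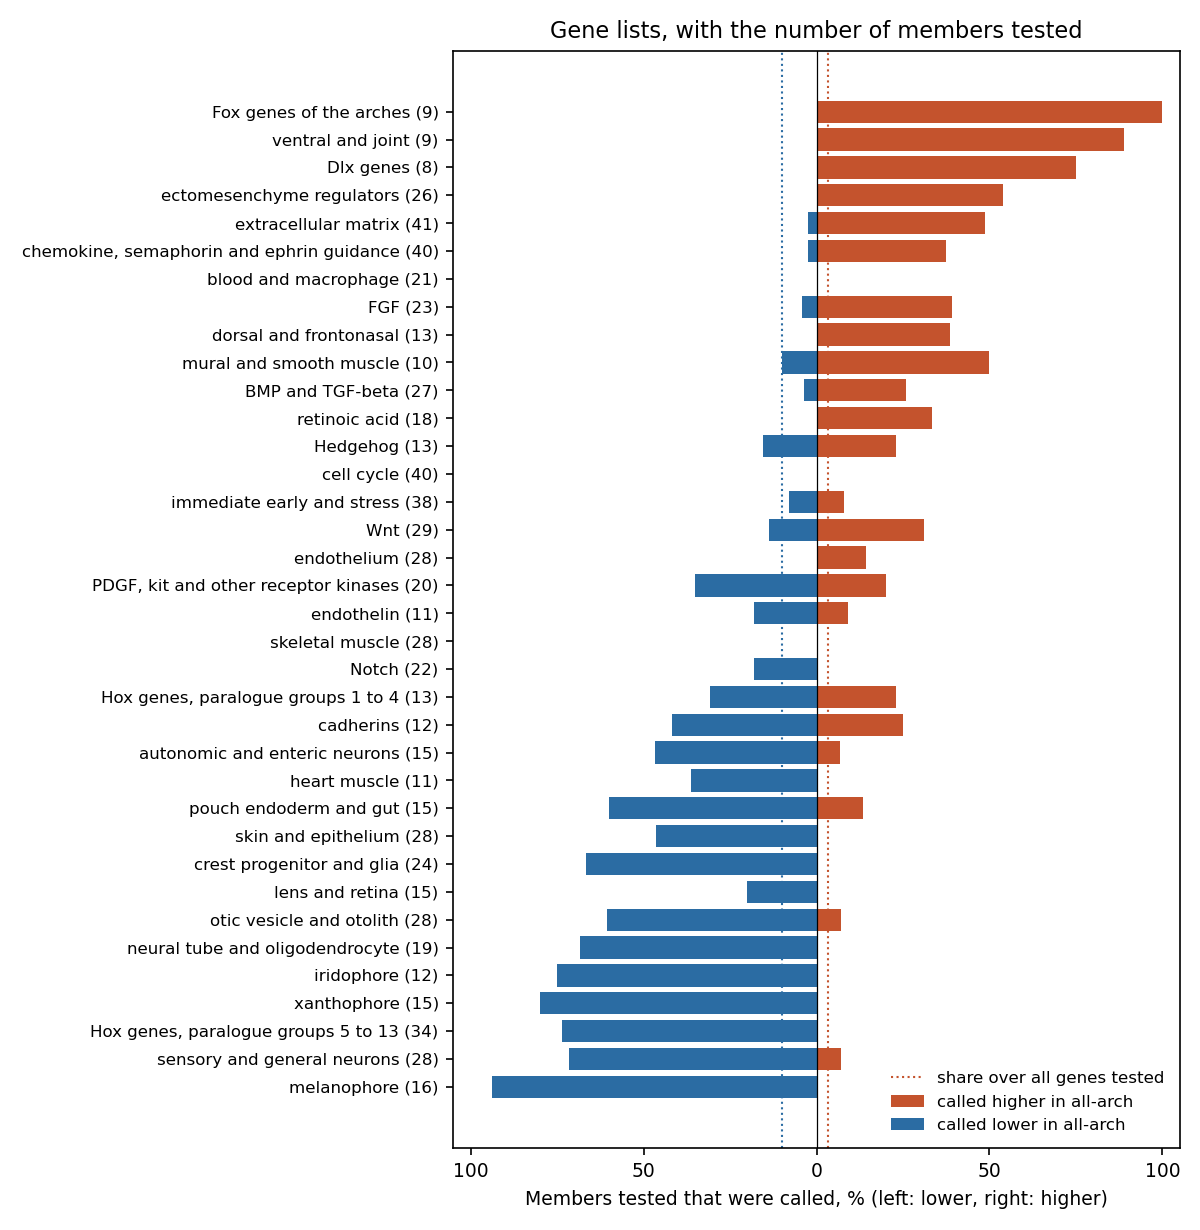
For each gene list, the share of tested members called higher and called lower in all-arch cells, with the number tested in brackets and rows ordered by the median log2 difference. Dotted lines mark 3.40% and 10.02%, the shares over all genes. Fox, ventral and Dlx lists lie at the top, and melanophore, sensory neuron and posterior Hox lists at the bottom.

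Regulators of ectomesenchyme were higher in all-arch cells. Of 26 members tested of 29 found, 14 were higher and 0 lower, with a median log2 difference of 1.91 beside -0.04 over all genes. The basic helix-loop-helix factor twist1a, which keeps arch crest mesenchymal, stood at 727, 2036 and 1578 TPM in all-arch cells and 32.3, 142 and 72.4 TPM in sox10-only cells (log2 difference 4.23, SE 0.55, limma adjusted p = 1.47e-04). Its duplicate twist1b stood at 433, 902 and 737 TPM against 30.8, 53.1 and 38.3 TPM (log2 difference 4.02, SE 0.39, limma adjusted p = 2.64e-05). All 3 all-arch libraries lay above all 3 sox10-only libraries for both copies. The paired-type homeobox gene prrx1a, a mesenchymal regulator of the limb and face, stood at 248, 388 and 276 TPM against 15.9, 18.7 and 18.7 TPM (log2 difference 3.9997, SE 0.35, limma adjusted p = 1.79e-05). The gene prrx1b stood at 319.8, 406 and 427 TPM against 13.4, 15.5 and 19.3 TPM (log2 difference 4.501, SE 0.35, limma adjusted p = 1.65e-05). The homeobox gene barx1, which holds back joint fate and promotes cartilage in the arches, had the largest positive difference of the genes without overlap and with at least 10 TPM in the higher group, at 514, 756 and 825 TPM in all-arch cells and 15.7, 29.3 and 26.4 TPM in sox10-only cells (log2 difference 4.83, SE 0.43, limma adjusted p = 1.93e-05). The lowest all-arch library was far above the highest sox10-only library. The odd-skipped gene osr1 stood at 87.6, 122 and 97.3 TPM against 4.40, 5.31 and 3.95 TPM (log2 difference 4.21, SE 0.36, limma adjusted p = 1.65e-05). The gene osr2 stood at 21.2, 31.9 and 80.7 TPM against 0.745, 3.80 and 2.31 TPM (log2 difference 3.69, SE 0.58, limma adjusted p = 8.41e-04). The sine oculis-type homeobox genes six1a and six2a stood at 746, 588 and 695 TPM against 91.6, 46.0 and 78.8 TPM and at 183, 169 and 166 TPM against 15.8, 10.9 and 18.6 TPM respectively. Their log2 differences were 3.26 and 3.46, with limma adjusted p of 1.81e-04 and 3.63e-05.

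Further members were also called higher. The homeobox gene pitx1, a jaw and hindlimb regulator, stood at 15.9, 22.1 and 39.2 TPM against 0.0634, 1.93 and 1.69 TPM (log2 difference 3.62, SE 0.52, limma adjusted p = 4.01e-04). The T-box gene tbx22, linked to palate formation in humans, stood at 3.62, 3.71 and 4.26 TPM against 0.133, 0.335 and 0.214 TPM (log2 difference 1.99, SE 0.28, limma adjusted p = 2.88e-04). The epithelial-mesenchymal transition factor snai2 was also higher, at 322, 612 and 382 TPM against 67.8, 182 and 135 TPM (log2 difference 1.82, SE 0.44, limma adjusted p = 0.0124). With the 36-hpf sox10-only library alone, snai2 lost its call (limma adjusted p = 0.206). Calls lost under other settings were those of snai2 without all-arch replicate 2 or sox10-only replicate 1 (limma adjusted p up to 0.0657).

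Other crest regulators did not pass. The neural crest factor tfap2a stood at 106, 159 and 199 TPM in all-arch cells and 126, 152 and 197 TPM in sox10-only cells (log2 difference -0.06, SE 0.37, limma adjusted p = 0.973), so the libraries of both groups covered the same range. The Msx homeobox genes msx1b, msx2b and msx3, which respond to BMP signals, had log2 differences of 0.56, 0.14 and 0.49 with limma adjusted p of 0.656, 0.942 and 0.741. Cartilage regulators varied widely between replicates. The gene sox9a, needed for cartilage condensation, stood at 25.4, 203 and 215 TPM in all-arch cells and 3.96, 33.8 and 60.3 TPM in sox10-only cells (log2 difference 2.26, SE 1.19, limma adjusted p = 0.366). Its partner sox9b stood at 8.58, 35.1 and 57.5 TPM against 18.3, 86.3 and 153 TPM (log2 difference -1.23, SE 0.98, limma adjusted p = 0.644). Replicate 1 was lowest in both groups for both genes, and within each replicate number sox9a was higher and sox9b lower in all-arch cells. With the replicate block both passed, sox9a as higher (adjusted p = 9.19e-06 in limma with the replicate block) and sox9b as lower (adjusted p = 0.0165 in limma with the replicate block). The bone regulators runx2a and runx2b were below the minimum for testing.

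**Figure D4:**
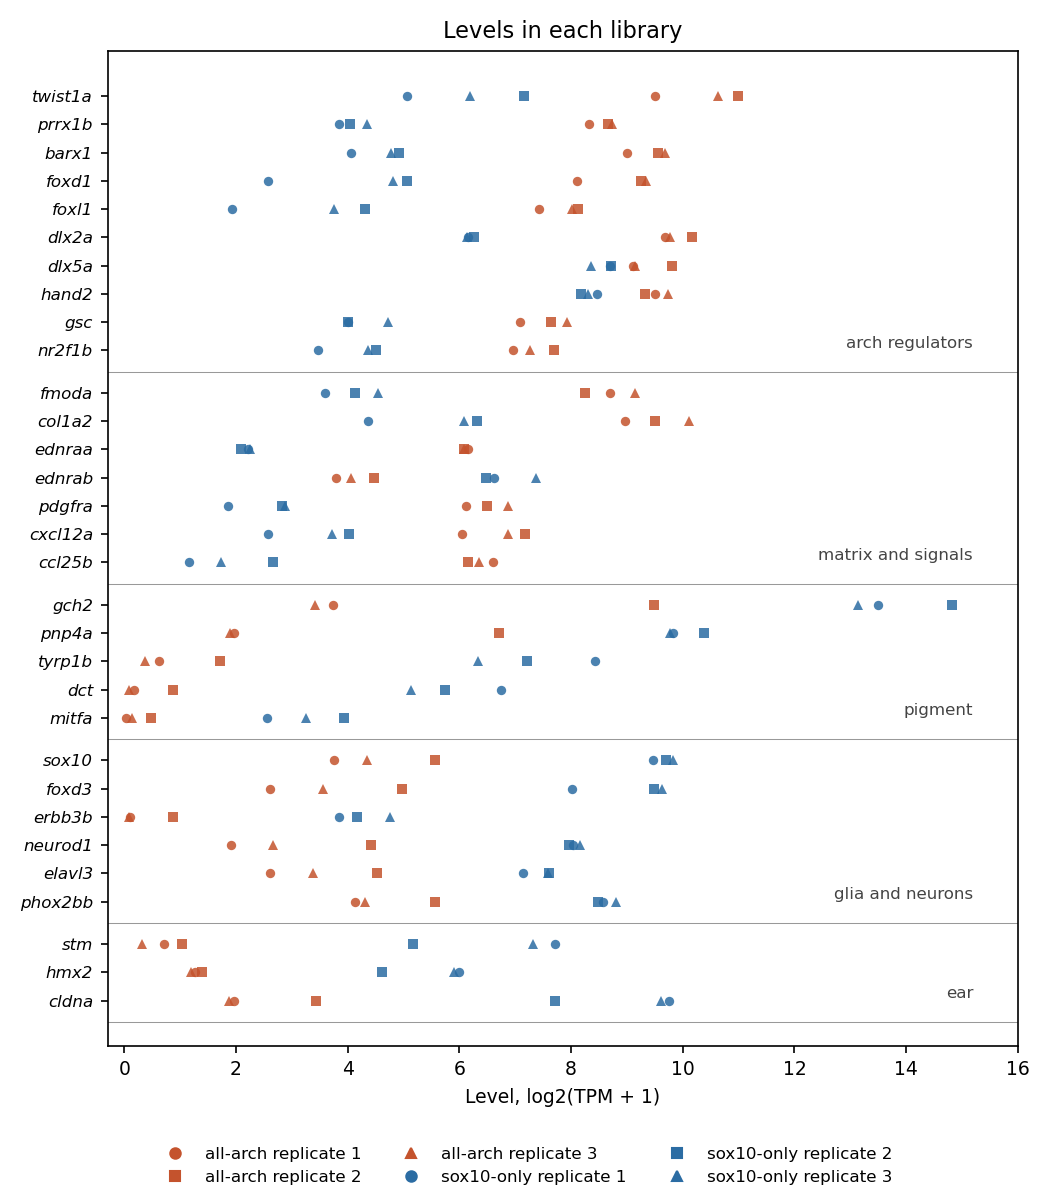
Log2(TPM + 1) of 31 genes in 5 groups in each library, with circles, squares and triangles for replicates 1, 2 and 3. Arch regulators such as barx1 lie further right in the all-arch libraries and pigment, glial, neuronal and ear genes further left, and the all-arch replicate 2 points lie to the right of their partners for gch2 and pnp4a.

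Dlx homeobox genes pattern the arches from dorsal to ventral. Of 8 tested, 6 were higher and 0 lower, with a median log2 difference of 2.18. The gene dlx2a, active in all arch crest, stood at 821, 1143 and 873 TPM in all-arch cells and 70.5, 76.2 and 69.1 TPM in sox10-only cells (log2 difference 3.69, SE 0.37, limma adjusted p = 3.04e-05). The gene dlx1a stood at 367, 522 and 382 TPM against 46.4, 37.5 and 41.7 TPM (log2 difference 3.30, SE 0.36, limma adjusted p = 4.27e-05). Both were also present in sox10-only cells. The ventral-intermediate gene dlx4a stood at 74.2, 166 and 111 TPM against 2.73, 5.10 and 2.18 TPM (log2 difference 4.75, SE 0.39, limma adjusted p = 1.65e-05), low in sox10-only cells. The genes dlx3b, dlx4b and dlx6a had log2 differences of 2.19, 2.16 and 1.60 with limma adjusted p of 0.00264, 0.00324 and 0.00256. In contrast dlx5a was high in both groups, at 555, 893 and 562 TPM in all-arch cells and 414, 418 and 325 TPM in sox10-only cells (log2 difference 0.77, SE 0.40, limma adjusted p = 0.314). The gene dlx5a is also known from the ear vesicle, as are dlx3b and dlx4b. The higher count was 4 with the 36-hpf library alone and 3 with all-arch replicate 2 also left out. dlx3b and dlx4b lost their calls when the 36-hpf library stood alone for sox10-only cells (limma adjusted p 0.0622 to 0.0865). The combination of the 36-hpf library alone and no all-arch replicate 2 ended the call for dlx6a (limma adjusted p = 0.106).

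All 9 tested Fox genes of the arches were higher, with a median log2 difference of 4.33, and foxp2 was below the minimum. The gene foxd1 stood at 276, 609 and 648 TPM in all-arch cells and 4.98, 32.5 and 27.0 TPM in sox10-only cells (log2 difference 4.75, SE 0.64, limma adjusted p = 3.54e-04). The genes foxf1 and foxf2a, hedgehog-responsive forkhead factors of oral mesenchyme, stood at 79.6, 123 and 161 TPM against 2.43, 5.72 and 7.55 TPM and 262, 297 and 379 TPM against 8.93, 18.7 and 13.1 TPM. Their log2 differences were 4.33 and 4.47, with limma adjusted p of 3.72e-05 and 1.94e-05. The gene foxl1 stood at 170.1, 278 and 259 TPM against 2.82, 18.9 and 12.5 TPM (log2 difference 4.52, SE 0.55, limma adjusted p = 1.28e-04). In sox10-only cells replicate 1 was the lowest library for all of foxd1, foxf1, foxf2a and foxl1. The gene foxc1a, needed for facial cartilage, stood at 503, 338 and 708 TPM against 12.4, 27.2 and 30.6 TPM (log2 difference 4.43, SE 0.48, limma adjusted p = 4.57e-05). The gene foxc1b stood at 377, 1477 and 1217 TPM against 21.2, 96.4 and 84.4 TPM (log2 difference 3.95, SE 0.68, limma adjusted p = 0.00217). The gene foxd2 stood at 562, 366 and 698 TPM against 39.8, 43.7 and 65.7 TPM (log2 difference 3.40, SE 0.47, limma adjusted p = 2.40e-04). The gene foxf2b stood at 59.1, 91.6 and 132 TPM against 2.36, 9.99 and 6.77 TPM (log2 difference 3.78, SE 0.48, limma adjusted p = 1.39e-04). The smallest difference of the list was that of foxp1b at 3.25, 3.16 and 4.37 TPM against 0.432, 0.455 and 0.717 TPM (log2 difference 1.58, SE 0.32, limma adjusted p = 0.00416). Against the 36-hpf sox10-only library alone, foxp1b did not pass (limma adjusted p = 0.105).

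Ventral and joint genes were higher in 8 of 9 tested members, with 0 lower and a median of 3.00. The homeobox gene gsc, which shapes the jaw and ear region, stood at 134, 197 and 243 TPM in all-arch cells and 15.06, 15.04 and 25.3 TPM in sox10-only cells (log2 difference 3.31, SE 0.41, limma adjusted p = 1.06e-04). The BMP antagonist grem2b, which permits joint formation, stood at 79.8, 128 and 71.5 TPM against 3.58, 5.86 and 3.74 TPM (log2 difference 4.104, SE 0.39, limma adjusted p = 2.21e-05). The joint gene nkx3.2 stood at 169, 119 and 114 TPM against 20.4, 68.8 and 15.05 TPM (log2 difference 2.205, SE 0.51, limma adjusted p = 0.00963), with sox10-only replicate 2 well above its partners. The joint gene irx7 stood at 24.7, 75.8 and 42.6 TPM against 1.78, 12.1 and 4.05 TPM (log2 difference 2.96, SE 0.62, limma adjusted p = 0.00705), highest in replicate 2 of each group. The LIM homeobox gene lhx6 stood at 36.5, 52.8 and 62.3 TPM against 0.629, 2.87 and 2.21 TPM (log2 difference 4.21, SE 0.44, limma adjusted p = 3.46e-05). The gene lhx8a stood at 37.2, 69.2 and 80.2 TPM against 1.92, 6.57 and 3.19 TPM (log2 difference 3.73, SE 0.45, limma adjusted p = 9.10e-05). The gene emx2 stood at 203, 359 and 261 TPM against 31.2, 25.6 and 42.6 TPM (log2 difference 3.003, SE 0.39, limma adjusted p = 1.55e-04). No library of one group overlapped the other for these 7 genes. The exception was hand2, the ventral master regulator, which was high in both groups at 729, 639 and 856 TPM in all-arch cells and 354, 289 and 314 TPM in sox10-only cells (log2 difference 1.21, SE 0.47, limma adjusted p = 0.138). Its all-arch libraries nevertheless lay above its sox10-only libraries, and it passed with the replicate block (adjusted p = 0.0192 in limma with the replicate block).

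The dorsal and frontonasal list was more mixed, with 5 of 13 tested members higher, 0 lower and a median of 0.98. The orphan nuclear receptor gene nr2f1b, a dorsal arch regulator, stood at 123, 206 and 153 TPM in all-arch cells and 10.05, 21.9 and 19.6 TPM in sox10-only cells (log2 difference 3.19, SE 0.40, limma adjusted p = 1.12e-04). The dorsal signal gene fgf20b stood at 14.7, 19.6 and 16.2 TPM against 2.84, 0.532 and 2.39 TPM (log2 difference 2.71, SE 0.40, limma adjusted p = 4.19e-04). The semaphorin gene sema3e stood at 8.86, 5.87 and 10.8 TPM against 0.537, 0.388 and 0.901 TPM (log2 difference 2.54, SE 0.37, limma adjusted p = 3.71e-04). These 3 genes showed no overlap between groups. The POU gene pou3f3b stood at 392, 826 and 539 TPM against 183, 229.8 and 208 TPM (log2 difference 1.43, SE 0.39, limma adjusted p = 0.0239). Other members did not pass, such as nr2f5 with overlapping groups at 50.8, 67.2 and 71.3 TPM against 58.9, 68.4 and 96.7 TPM (log2 difference -0.22, SE 0.40, limma adjusted p = 0.889). The Notch ligand gene jag1b, which promotes dorsal fate, stood at 29.1, 38.4 and 40.8 TPM against 11.6, 21.2 and 27.98 TPM (log2 difference 0.87, SE 0.42, limma adjusted p = 0.260), with its lowest all-arch library just above its highest sox10-only library. The gene alx4a, known in frontonasal crest and in iridophores, stood at 27.5, 33.6 and 36.2 TPM against 36.7, 123 and 86.2 TPM (log2 difference -1.16, SE 0.45, limma adjusted p = 0.136), and with the replicate block it was called lower (adjusted p = 0.0344 in limma with the replicate block). With the block 8 members were higher and 1 lower, and 9 were higher after either rescaling. The count was 3 without all-arch replicate 3, without sox10-only replicate 1, and with the 36-hpf sox10-only library alone. pou3f3b did not pass against the 36-hpf library alone (limma adjusted p = 0.346). Other settings ended the calls of pou3f3b without all-arch replicate 2 or 3 or sox10-only replicate 1, 2 or 3 (limma adjusted p up to 0.150).

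Extracellular matrix genes were higher in 20 of 41 tested members and lower in 1, with a median of 1.52. Small proteoglycans of fibrous tissue were among the largest. The gene fmoda (fibromodulin) stood at 417, 304 and 565 TPM in all-arch cells and 11.1, 16.6 and 22.4 TPM in sox10-only cells (log2 difference 4.61, SE 0.45, limma adjusted p = 2.66e-05). The gene lum (lumican) stood at 515, 256 and 447 TPM against 15.24, 12.9 and 33.6 TPM (log2 difference 4.30, SE 0.50, limma adjusted p = 6.67e-05), and dcn (decorin) at 134, 119.7 and 143 TPM against 4.51, 6.82 and 8.07 TPM (log2 difference 4.18, SE 0.39, limma adjusted p = 2.04e-05). All 3 were far lower in every sox10-only library. Of the fibrillar collagens, col1a2 stood at 499, 725 and 1100.2 TPM against 19.5, 78.8 and 66.4 TPM (log2 difference 3.94, SE 0.53, limma adjusted p = 2.02e-04). The gene col1a1a stood at 259, 937 and 1456 TPM against 14.2, 87.4 and 120.0 TPM (log2 difference 3.70, SE 0.95, limma adjusted p = 0.0299), with replicate 1 the lowest library of each group for both. The microfibrillar collagen gene col6a1 stood at 12.8, 17.5 and 20.3 TPM against 0.292, 0.983 and 1.04 TPM (log2 difference 3.34, SE 0.38, limma adjusted p = 6.30e-05). The matricellular gene ctgfb stood at 53.6, 147 and 38.2 TPM against 1.73, 3.40 and 0.653 TPM (log2 difference 4.66, SE 0.51, limma adjusted p = 4.93e-05). Its duplicate ctgfa stood at 324, 658 and 383 TPM against 497, 513 and 1432 TPM (log2 difference -0.72, SE 0.48, limma adjusted p = 0.514). The hyaluronan synthase gene has2 stood at 9.57, 21.96 and 19.3 TPM against 1.39, 2.204 and 2.01 TPM (log2 difference 2.58, SE 0.42, limma adjusted p = 9.07e-04). The thrombospondin gene thbs3b stood at 24.9, 28.8 and 50.04 TPM against 2.57, 2.999 and 4.57 TPM (log2 difference 2.98, SE 0.42, limma adjusted p = 2.77e-04). The matrix proteases mmp2 and mmp14a had log2 differences of 2.15 and 2.42 with limma adjusted p of 0.00214 and 7.66e-04. When only the 36-hpf sox10-only library was kept, col1a1a, mmp2 and mmp14a no longer passed (limma adjusted p 0.0789 to 0.192). Of the genes named here, calls were lost by col1a1a without all-arch replicate 2 or 3 or sox10-only replicate 2 (limma adjusted p up to 0.120).

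Several cartilage and notochord collagens were very high in a single library. The gene col2a1a, the main collagen of cartilage, stood at 29.3, 57.0 and 114 TPM in all-arch cells and 173, 157 and 6789.6 TPM in sox10-only cells (log2 difference -3.28, SE 1.498, limma adjusted p = 0.277). Sox10-only replicate 3 stood far above the other 5 libraries, and the difference did not pass despite no overlap. The gene col9a1b, which encodes a partner of that collagen, stood at 0.162, 0.217 and 0.609 TPM against 23.4, 8.29 and 735 TPM, and col9a3 at 5.72, 16.4 and 24.3 TPM against 17.3, 22.1 and 740.4 TPM. The gene col9a1a, of the same collagen type, was not in that pattern, at 16.4, 19.4 and 34.6 TPM against 8.78, 9.08 and 15.4 TPM (log2 difference 0.99, SE 0.47, limma adjusted p = 0.252). It was higher with the block (adjusted p = 0.0319 in limma with the replicate block). The list's lower member was emilin3a at 0.0660, 0.125 and 0.0799 TPM against 3.14, 1.96 and 8.99 TPM (log2 difference -2.19, SE 0.49, limma adjusted p = 0.00959), which did not pass with a pseudocount of 10 (limma adjusted p = 0.0613). With the 36-hpf library alone, the list count was 9 higher and 6 lower.

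The endothelin receptors separated by duplicate. Endothelin signals through A-type receptors to set ventral arch fate, and through B-type receptors in pigment lineages. The gene ednraa stood at 70.5, 66.6 and 66.5 TPM in all-arch cells and 3.64, 3.27 and 3.75 TPM in sox10-only cells (log2 difference 3.92, SE 0.41, limma adjusted p = 3.68e-05), and replicates of each group lay within a few TPM of each other. Its duplicate ednrab stood at 12.9, 21.1 and 15.7 TPM in all-arch cells and 97.7, 88.0 and 166 TPM in sox10-only cells (log2 difference -2.72, SE 0.36, limma adjusted p = 1.75e-04). Both genes were without overlap, in opposite directions. The difference of log2(TPM + 1) between ednraa and ednrab within a library was 2.00 ± 0.37 (SD, n = 3) in all-arch cells and -4.64 ± 0.42 (SD, n = 3) in sox10-only cells. An exact 2-sided permutation test of that difference gave p = 0.1, the smallest value that 3 against 3 libraries allow. With both genes already without overlap in opposite directions, the test could give no other value and adds no support. The B-type receptor gene ednrba stood at 0.641, 5.66 and 1.14 TPM against 41.5, 125 and 109 TPM (log2 difference -4.87, SE 0.54, limma adjusted p = 6.76e-05), highest among all-arch libraries in replicate 2. Ligand genes were low in both groups, with edn1 at 0.136, 0.428 and 0.549 TPM against 1.05, 1.15 and 0.287 TPM (log2 difference -0.39, SE 0.49, limma adjusted p = 0.813). The gene edn2 stood at 2.31, 1.66 and 3.47 TPM against 5.51, 3.39 and 5.49 TPM (log2 difference -0.75, SE 0.68, limma adjusted p = 0.703). Of 11 endothelin pathway members tested, these 3 receptors were the ones called, 1 higher and 2 lower.

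In the list of PDGF, kit and other receptor kinases and their ligands, 4 of 20 tested members were higher and 7 lower. The gene pdgfra, the receptor of platelet-derived growth factor on crest mesenchyme, stood at 68.9, 89.2 and 116 TPM in all-arch cells and 2.64, 6.08 and 6.31 TPM in sox10-only cells (log2 difference 3.98, SE 0.42, limma adjusted p = 3.81e-05), and pdgfrb at 9.71, 9.25 and 12.6 TPM against 0.189, 0.581 and 0.696 TPM (log2 difference 2.96, SE 0.34, limma adjusted p = 6.34e-05). The growth factor gene igf2a stood at 22.1, 44.2 and 13.6 TPM against 4.60, 1.98 and 3.89 TPM (log2 difference 2.52, SE 0.43, limma adjusted p = 0.00133). These 3 genes were without overlap. The fourth higher member was the cytokine gene csf1a at 8.52, 12.7 and 12.1 TPM against 1.24, 6.402 and 4.31 TPM (log2 difference 1.43, SE 0.44, limma adjusted p = 0.0488). Several receptors known from pigment, glial and enteric lineages were lower. The neuregulin receptor gene erbb3b, required in Schwann cell precursors, stood at 0.0695, 0.835 and 0.0545 TPM against 13.3, 17.0 and 26.2 TPM (log2 difference -3.91, SE 0.34, limma adjusted p = 1.65e-05). The gene ret, the receptor component of enteric neuron precursors, stood at 0.909, 1.94 and 1.67 TPM against 12.6, 9.99 and 21.2 TPM (log2 difference -2.60, SE 0.36, limma adjusted p = 2.41e-04). The iridophore receptor gene ltk stood at 0.101, 0.477 and 0.248 TPM against 1.53, 7.41 and 7.47 TPM (log2 difference -2.16, SE 0.42, limma adjusted p = 0.00281). The xanthophore receptor gene csf1ra stood at 0.0783, 0.787 and 0.289 TPM against 4.18, 19.7 and 9.69 TPM (log2 difference -2.95, SE 0.45, limma adjusted p = 5.36e-04). Kit ligand genes were lower too, with kitlga at 3.68, 4.22 and 4.65 TPM against 22.5, 18.9 and 37.6 TPM (log2 difference -2.34, SE 0.39, limma adjusted p = 9.42e-04) and kitlgb at 1.21, 3.35 and 0.874 TPM against 31.5, 67.1 and 31.9 TPM (log2 difference -3.99, SE 0.41, limma adjusted p = 3.49e-05). The receptor gene kita itself stood at 1.63, 1.77 and 3.18 TPM against 0.752, 1.48 and 2.96 TPM (log2 difference 0.27, SE 0.37, limma adjusted p = 0.836). For csf1ra, ltk and erbb3b all-arch replicate 2 was the highest library of its group. The seventh lower member was the receptor component gene gfra1a at 0.442, 0.404 and 0.351 TPM against 3.23, 1.43 and 1.83 TPM (log2 difference -1.14, SE 0.29, limma adjusted p = 0.0171). The higher count was 2 with the 36-hpf library alone and all-arch replicate 2 left out. With the 36-hpf sox10-only library alone, csf1a lost its call (limma adjusted p = 0.397). With the 36-hpf library alone and all-arch replicate 2 left out, igf2a and gfra1a did not pass (limma adjusted p 0.0798 to 0.137). Not every call held under other settings, with losses for csf1a without all-arch replicate 1, 2 or 3 or sox10-only replicate 1 or 3, with a pseudocount of 0.1, with no filter or in the 6-library fit (limma adjusted p up to 0.202) and gfra1a without all-arch replicate 2 or 3 or after quantile normalization (limma adjusted p up to 0.154).

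FGF pathway genes were higher in 9 of 23 tested members and lower in 1, with a median of 0.99. The ligand duplicates fgf20a and fgf20b differed in opposite directions. The gene fgf20a stood at 2.60, 2.21 and 1.58 TPM in all-arch cells and 12.4, 4.60 and 24.5 TPM in sox10-only cells (log2 difference -2.001, SE 0.46, limma adjusted p = 0.00917), whereas fgf20b was given above with the dorsal genes. The pouch and arch ligand gene fgf3 stood at 12.6, 108 and 86.0 TPM against 1.29, 4.51 and 6.50 TPM (log2 difference 3.47, SE 0.88, limma adjusted p = 0.0292), lowest in replicate 1 of each group. The FGF-binding protein gene fgfbp2a stood at 31.3, 54.5 and 47.2 TPM against 0.842, 0.293 and 2.14 TPM (log2 difference 4.4998, SE 0.39, limma adjusted p = 1.75e-05). Of the receptors, fgfr2 stood at 9.97, 27.5 and 37.5 TPM against 1.26, 3.17 and 7.53 TPM (log2 difference 2.41, SE 0.61, limma adjusted p = 0.0201). The gene fgfr4 stood at 139.5, 231 and 266 TPM against 37.1, 55.4 and 106 TPM (log2 difference 1.75, SE 0.47, limma adjusted p = 0.0245). The decoy-type receptor gene fgfrl1a stood at 7.27, 9.04 and 9.67 TPM against 1.35, 1.19 and 2.71 TPM (log2 difference 1.84, SE 0.35, limma adjusted p = 0.00238). Of the feedback and target genes of FGF signalling, the inhibitor gene il17rd was higher at 7.12, 6.98 and 7.90 TPM against 1.70, 1.2002 and 2.65 TPM (log2 difference 1.58, SE 0.33, limma adjusted p = 0.00533). The others tested did not pass. The feedback gene spry4 stood at 194, 638 and 353 TPM against 342, 481 and 615 TPM (log2 difference -0.40, SE 0.48, limma adjusted p = 0.797). The feedback phosphatase gene dusp6 stood at 175, 934 and 477 TPM against 118, 371 and 359 TPM (log2 difference 0.77, SE 0.64, limma adjusted p = 0.659). The Ets target gene etv5b stood at 196, 248 and 229 TPM against 122, 83.6 and 136 TPM (log2 difference 0.99, SE 0.47, limma adjusted p = 0.260). The count of higher members was 4 without all-arch replicate 2 or 3 or sox10-only replicate 1 or 2, and it was 2 with the 36-hpf library alone. fgf3, fgfr2, fgfr4, fgfrl1a and il17rd lost their calls when the 36-hpf library stood alone for sox10-only cells (limma adjusted p 0.210 to 0.741). Calls lost under other settings were those of fgf20a in the 6-library fit (limma adjusted p = 0.0577), fgf3 without all-arch replicate 2 or 3 or sox10-only replicate 1, 2 or 3 or on the deposited scale (limma adjusted p up to 0.126), fgfr2 without all-arch replicate 2 or 3 or sox10-only replicate 1 or 2 or in the 6-library fit (limma adjusted p up to 0.0737) and fgfr4 without all-arch replicate 2 or 3 or sox10-only replicate 1 or 2 or with no filter (limma adjusted p up to 0.103).

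BMP and TGF-beta genes were higher in 7 of 27 tested members and lower in 1, with a median of 0.85. The ligand gene bmp5 stood at 19.1, 28.7 and 27.6 TPM in all-arch cells and 5.97, 5.04 and 8.27 TPM in sox10-only cells (log2 difference 1.82, SE 0.35, limma adjusted p = 0.00267). The antagonist gene nog1 (noggin) stood at 71.3, 84.3 and 109 TPM against 10.5, 16.1 and 35.2 TPM (log2 difference 2.19, SE 0.47, limma adjusted p = 0.00598). The gene nog2 stood at 117, 375 and 229 TPM against 23.7, 68.2 and 72.1 TPM (log2 difference 2.12, SE 0.51, limma adjusted p = 0.0123). The activin subunit gene inhbaa stood at 13.5, 16.9 and 22.3 TPM against 1.23, 5.47 and 1.34 TPM (log2 difference 2.496, SE 0.44, limma adjusted p = 0.00160). Ligand duplicates bmp2a and bmp2b were called in opposite directions, bmp2a lower at 4.75, 9.29 and 6.34 TPM against 18.0, 13.2 and 16.4 TPM (log2 difference -1.146, SE 0.35, limma adjusted p = 0.0481) and bmp2b higher at 64.4, 58.5 and 67.3 TPM against 28.2, 12.97 and 31.5 TPM (log2 difference 1.44, SE 0.38, limma adjusted p = 0.0223). Target genes were abundant in both groups, with id1 at 4023, 6218 and 4618 TPM against 2728, 3655 and 3798 TPM (log2 difference 0.54, SE 0.44, limma adjusted p = 0.646). The gene id3 stood at 526, 469.8 and 604 TPM against 239, 163 and 229 TPM (log2 difference 1.35, SE 0.47, limma adjusted p = 0.0838). All 3 all-arch libraries lay above for id3, which passed with the replicate block (adjusted p = 0.00671 in limma with the replicate block). The block gave 13 higher and 2 lower members, rescaling gave 15 and 16 higher, and the 36-hpf library alone gave 2 higher and 0 lower. Against the 36-hpf sox10-only library alone, bmp5, nog1, nog2, bmp2a and bmp2b did not pass (limma adjusted p 0.193 to 0.623). Other settings ended the calls of nog2 without all-arch replicate 2 or in the 6-library fit (limma adjusted p up to 0.0579), bmp2a without all-arch replicate 1, 2 or 3 or sox10-only replicate 1, 2 or 3, with a pseudocount of 0.1 or with a minimum mean of 10 TPM (limma adjusted p up to 0.221) and bmp2b without all-arch replicate 1, 2 or 3 or sox10-only replicate 2 (limma adjusted p up to 0.159).

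Notch pathway genes were lower in 4 of 22 tested members and higher in 0, with a median of -0.50. The called genes were receptor and ligand genes that also act in neurogenesis. The ligand genes dla and dlb stood at 8.24, 9.77 and 10.6 TPM in all-arch cells and 101, 65.0 and 110.3 TPM in sox10-only cells and at 6.18, 24.8 and 12.1 TPM against 93.0, 103 and 169 TPM respectively. Their log2 differences were -3.12 and -3.14, with limma adjusted p of 0.00866 and 0.00163. The ligand gene dld stood at 3.26, 11.5 and 9.01 TPM against 27.4, 41.9 and 58.5 TPM (log2 difference -2.36, SE 0.65, limma adjusted p = 0.0339). The receptor gene notch1a stood at 2.32, 3.91 and 3.72 TPM against 8.64, 13.03 and 18.5 TPM (log2 difference -1.70, SE 0.50, limma adjusted p = 0.0405). Several target genes varied with the replicate number in both groups. The gene her4.1 stood at 70.9, 18.9 and 82.6 TPM against 962, 126 and 1139 TPM (log2 difference -3.39, SE 1.48, limma adjusted p = 0.249). The gene hey1 stood at 782, 154 and 431 TPM against 338, 39.7 and 225 TPM (log2 difference 1.36, SE 1.01, limma adjusted p = 0.605). Replicate 2 was the lowest library of each group for both genes. With the replicate block her4.1 was lower (adjusted p = 7.27e-05 in limma with the replicate block) and hey1 higher (adjusted p = 0.00410 in limma with the replicate block). The her4 genes have near-identical copies, so reads may have been divided between them. The block gave 8 lower and 2 higher members, and the count of lower members was 2 without all-arch replicate 1 or 3, without sox10-only replicate 2 or 3, with a pseudocount of 10 and with the 36-hpf library alone. dla and dld did not pass against the 36-hpf library alone (limma adjusted p 0.0578 to 0.0724). Of the genes named here, calls were lost by dld without all-arch replicate 1 or 3 or sox10-only replicate 2 or 3, with a pseudocount of 10, on the deposited scale or with no filter (limma adjusted p up to 0.118) and notch1a without all-arch replicate 1, 2 or 3 or sox10-only replicate 2 or 3, with a pseudocount of 10 or with no filter (limma adjusted p up to 0.142).

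Wnt pathway genes were higher in 9 of 29 tested members and lower in 4, with a median of 0.20. The secreted antagonist gene sfrp2 stood at 80.7, 191 and 203 TPM in all-arch cells and 8.56, 13.02 and 24.7 TPM in sox10-only cells (log2 difference 3.29, SE 0.47, limma adjusted p = 3.44e-04). The gene sfrp1a stood at 15.9, 20.2 and 23.8 TPM against 3.85, 2.19 and 6.93 TPM (log2 difference 2.06, SE 0.43, limma adjusted p = 0.00461). The non-canonical ligand gene wnt5b stood at 2.65, 5.49 and 5.86 TPM against 0.344, 0.338 and 0.831 TPM (log2 difference 1.88, SE 0.32, limma adjusted p = 0.00129), and its receptor gene ror2 at 5.87, 7.62 and 11.2 TPM against 1.13, 1.40 and 3.41 TPM (log2 difference 1.67, SE 0.38, limma adjusted p = 0.00893). Those 4 genes were without overlap. Of the frizzled receptors, fzd7b stood at 569, 635 and 736 TPM against 189, 145 and 242 TPM (log2 difference 1.77, SE 0.40, limma adjusted p = 0.00807), fzd8a at 206, 419 and 404 TPM against 63.9, 111 and 136 TPM (log2 difference 1.71, SE 0.42, limma adjusted p = 0.0140). The gene fzd9b stood at 164, 145 and 344 TPM against 50.3, 34.9 and 75.3 TPM (log2 difference 1.96, SE 0.52, limma adjusted p = 0.0204). All 3 were high in both groups. The ligand gene wnt7aa stood at 0.422, 1.15 and 0.455 TPM against 15.9, 10.1 and 14.0 TPM (log2 difference -3.10, SE 0.32, limma adjusted p = 3.21e-05), near the floor in all-arch cells. The nuclear effector gene lef1 stood at 4.08, 6.33 and 5.23 TPM against 11.7, 15.7 and 19.0 TPM (log2 difference -1.40, SE 0.34, limma adjusted p = 0.0124). The antagonist gene dkk1a stood at 2.84, 12.8 and 6.75 TPM against 23.7, 164 and 98.7 TPM (log2 difference -3.32, SE 0.85, limma adjusted p = 0.0300). The target gene axin2 did not pass at 55.9, 52.3 and 71.0 TPM against 31.6, 30.0 and 42.8 TPM (log2 difference 0.77, SE 0.43, limma adjusted p = 0.372), although its groups did not overlap. The count of higher members was 5 without all-arch replicate 3 or without sox10-only replicate 2, and 2 with the 36-hpf library alone. It was 0 with all-arch replicate 2 also left out, where 2 were higher at an unadjusted limma p under 0.05. The count of lower members was 8 with the block, 1 without all-arch replicate 1 or sox10-only replicate 3, and 2 without all-arch replicate 3. When only the 36-hpf sox10-only library was kept, sfrp1a, ror2, fzd7b, fzd8a, fzd9b and lef1 no longer passed (limma adjusted p 0.0750 to 0.486). A call was also lost by sfrp2 and wnt5b when the 36-hpf library stood alone and all-arch replicate 2 was left out (limma adjusted p 0.0569 to 0.0980). Not every call held under other settings, with losses for fzd7b without sox10-only replicate 2 (limma adjusted p = 0.0552), fzd8a without all-arch replicate 2 or 3 or sox10-only replicate 1 (limma adjusted p up to 0.0727), fzd9b without all-arch replicate 3 or sox10-only replicate 2 or with no filter (limma adjusted p up to 0.102), lef1 without all-arch replicate 1 or 3 or sox10-only replicate 2 or 3 (limma adjusted p up to 0.0682) and dkk1a without all-arch replicate 1 or 3 or sox10-only replicate 2 or 3 (limma adjusted p up to 0.131).

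In the hedgehog list 3 of 13 tested members were higher and 2 lower. The ligand genes were lower. The gene shha stood at 0.216, 0.817 and 1.27 TPM in all-arch cells and 16.005, 8.46 and 137 TPM in sox10-only cells (log2 difference -4.04, SE 0.85, limma adjusted p = 0.0113), with sox10-only replicate 3 far above its partners. The gene shhb stood at 0, 0.262 and 0.112 TPM against 3.06, 2.61 and 7.10 TPM (log2 difference -2.13, SE 0.38, limma adjusted p = 0.00177). The co-receptor gene boc stood at 46.4, 58.9 and 77.5 TPM against 8.40, 8.18 and 14.3 TPM (log2 difference 2.47, SE 0.42, limma adjusted p = 0.00115) and the transcription factor gene gli2b at 7.23, 14.0 and 16.7 TPM against 1.22, 2.94 and 3.36 TPM (log2 difference 1.95, SE 0.41, limma adjusted p = 0.00557), both higher, as was foxf1 given above. The receptor and target gene ptch1 did not pass at 1.96, 7.02 and 8.74 TPM against 0.383, 1.30 and 3.28 TPM (log2 difference 1.36, SE 0.55, limma adjusted p = 0.169). With the block ptch1 was higher (adjusted p = 3.71e-04 in limma with the replicate block). The higher count was 1 with the 36-hpf library alone, and the lower count was 1 without all-arch replicate 1 or with a pseudocount of 10. With the 36-hpf sox10-only library alone, boc and gli2b lost their calls (limma adjusted p 0.0551 to 0.138). Calls lost under other settings were those of shha without all-arch replicate 1, with a pseudocount of 10 or on the deposited scale (limma adjusted p up to 0.134).

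Retinoic acid genes were higher in 6 of 18 tested members and lower in 0. The synthetic enzyme gene aldh1a2 stood at 4.59, 6.63 and 6.64 TPM in all-arch cells and 0.927, 1.26 and 2.26 TPM in sox10-only cells (log2 difference 1.51, SE 0.32, limma adjusted p = 0.00590). The degrading enzyme gene cyp26b1 stood at 29.9, 40.4 and 58.2 TPM against 4.94, 7.54 and 12.2 TPM (log2 difference 2.28, SE 0.52, limma adjusted p = 0.00936). The receptor gene rarga stood at 17.7, 18.1 and 21.7 TPM against 4.11, 4.20 and 5.79 TPM (log2 difference 1.83, SE 0.37, limma adjusted p = 0.00423). The retinol-binding protein gene rbp5 stood at 80.5, 70.7 and 80.7 TPM against 27.5, 9.40 and 24.3 TPM (log2 difference 1.996, SE 0.42, limma adjusted p = 0.00533). The cofactor gene meis1a stood at 10.1, 24.3 and 17.5 TPM against 1.002, 1.81 and 3.17 TPM (log2 difference 2.60, SE 0.39, limma adjusted p = 4.98e-04). For these 5 genes the groups did not overlap. The count was 1 with the 36-hpf library alone and 0 with all-arch replicate 2 also left out, where 4 were higher at an unadjusted limma p under 0.05. aldh1a2, cyp26b1, rarga and rbp5 lost their calls when the 36-hpf library stood alone for sox10-only cells (limma adjusted p 0.144 to 0.417). The combination of the 36-hpf library alone and no all-arch replicate 2 ended the call for meis1a (limma adjusted p = 0.159).

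Guidance genes were higher in 15 of 40 tested members and lower in 1. The chemokine gene cxcl12a, whose product guides migrating cells, stood at 65.0, 144 and 116 TPM in all-arch cells and 4.92, 15.3 and 12.1 TPM in sox10-only cells (log2 difference 3.26, SE 0.46, limma adjusted p = 2.92e-04). The gene cxcl12b stood at 88.1, 67.4 and 30.6 TPM against 10.2, 4.89 and 3.37 TPM (log2 difference 3.13, SE 0.53, limma adjusted p = 0.00125). The scavenger receptor gene ackr3b, which binds the same chemokine, stood at 326, 304 and 542 TPM against 70.8, 46.6 and 93.1 TPM (log2 difference 2.47, SE 0.42, limma adjusted p = 0.00127). The chemokine gene ccl25b stood at 96.7, 70.2 and 80.4 TPM against 1.23, 5.30 and 2.303 TPM (log2 difference 4.52, SE 0.41, limma adjusted p = 1.94e-05). The receptor gene cxcr4a stood at 35.9, 118 and 154 TPM against 7.60, 32.2 and 64.9 TPM (log2 difference 1.73, SE 0.94, limma adjusted p = 0.382), lowest in replicate 1 of each group, and passed with the block (adjusted p = 3.67e-04 in limma with the replicate block). Of the Eph receptor genes, epha4a stood at 10.9, 12.5 and 17.6 TPM against 1.91, 2.57 and 3.70 TPM (log2 difference 1.98, SE 0.39, limma adjusted p = 0.00324). The gene epha4b stood at 3.39, 3.90 and 5.03 TPM against 0.564, 0.594 and 0.775 TPM (log2 difference 1.63, SE 0.29, limma adjusted p = 0.00172). The semaphorin gene sema3fa stood at 4.87, 8.05 and 6.69 TPM against 0.984, 0.725 and 1.18 TPM (log2 difference 1.92, SE 0.36, limma adjusted p = 0.00237). The lower member was the netrin gene ntn1b at 0.166, 0.384 and 0.466 TPM against 12.1, 7.23 and 15.21 TPM (log2 difference -3.18, SE 0.33, limma adjusted p = 3.59e-05), whose duplicate ntn1a was called higher at 2.97, 1.61 and 2.35 TPM against 0.302, 0.638 and 0.435 TPM (log2 difference 1.17, SE 0.32, limma adjusted p = 0.0241). The block gave 23 higher and 2 lower, quantile normalization 25 higher, and the 36-hpf library alone 4 higher and 2 lower. Against the 36-hpf sox10-only library alone, ackr3b, epha4a, epha4b, sema3fa and ntn1a did not pass (limma adjusted p 0.0544 to 0.208). Other settings ended the calls of ntn1a without all-arch replicate 1 or 3 or sox10-only replicate 1 or 3 or with a pseudocount of 10 (limma adjusted p up to 0.105).

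Cadherins, the adhesion proteins that sort cells by type, divided with 3 of 12 tested members higher and 5 lower. The mesenchymal cadherin gene cdh11 stood at 85.1, 87.0 and 120.1 TPM in all-arch cells and 11.7, 18.4 and 21.4 TPM in sox10-only cells (log2 difference 2.46, SE 0.40, limma adjusted p = 7.76e-04). The protocadherin gene pcdh18b stood at 466, 385 and 582 TPM against 89.6, 77.9 and 121 TPM (log2 difference 2.303, SE 0.44, limma adjusted p = 0.00255). The epithelial cadherin gene cdh1 stood at 0.458, 0.624 and 0.444 TPM against 17.0, 13.8 and 13.7 TPM (log2 difference -3.39, SE 0.28, limma adjusted p = 1.65e-05). The glial cadherin gene cdh19 stood at 1.65, 5.88 and 7.41 TPM against 25.5, 47.3 and 48.7 TPM (log2 difference -2.90, SE 0.47, limma adjusted p = 8.65e-04). The protocadherin gene pcdh10a stood at 0.725, 0.787 and 0.492 TPM against 10.1, 10.2 and 7.97 TPM (log2 difference -2.64, SE 0.29, limma adjusted p = 4.57e-05). The neural cadherin gene cdh2 lay in the same range in both groups, at 14.3, 28.04 and 47.3 TPM against 12.2, 30.7 and 53.4 TPM (log2 difference -0.03, SE 0.62, limma adjusted p = 0.992). The higher count was 1 with the 36-hpf library alone and 0 with all-arch replicate 2 also left out, where 2 were higher at an unadjusted limma p under 0.05. pcdh18b did not pass against the 36-hpf library alone (limma adjusted p = 0.107). With the 36-hpf library alone and all-arch replicate 2 left out, cdh11 did not pass (limma adjusted p = 0.0790).

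Pigment lineage genes were lower in all-arch cells. Of 16 melanophore genes tested, 15 were lower and 0 higher, with a median of -3.28. The dopachrome tautomerase gene dct, a melanin enzyme, stood at 0.127, 0.831 and 0.0549 TPM in all-arch cells and 106, 52.7 and 34.2 TPM in sox10-only cells (log2 difference -5.50, SE 0.41, limma adjusted p = 1.65e-05). The melanin enzyme gene tyrp1b stood at 0.530, 2.297 and 0.290 TPM against 343, 146 and 79.2 TPM (log2 difference -6.42, SE 0.51, limma adjusted p = 1.65e-05). The melanosome matrix gene pmela stood at 1.498, 3.15 and 2.27 TPM against 156, 116 and 71.2 TPM (log2 difference -5.09, SE 0.38, limma adjusted p = 1.65e-05). Among the sox10-only libraries these 3 genes were highest in replicate 1. The master regulator gene mitfa stood at 0.0158, 0.394 and 0.102 TPM against 4.90, 14.4 and 8.52 TPM (log2 difference -3.04, SE 0.34, limma adjusted p = 5.71e-05). The enzyme gene tyr stood at 0.0476, 0.517 and 0.0432 TPM against 6.04, 21.9 and 18.2 TPM (log2 difference -3.62, SE 0.40, limma adjusted p = 5.15e-05), and neither mitfa nor tyr was highest in replicate 1. The exception in the list was kita, given above.

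Of 15 xanthophore genes 12 were lower and 0 higher, with a median of -2.95. The gene gch2, which starts pteridine synthesis in yellow pigment cells, stood at 12.4, 714 and 9.68 TPM in all-arch cells and 11593, 28950 and 9057 TPM in sox10-only cells (log2 difference -8.28, SE 1.51, limma adjusted p = 0.00850). All-arch replicate 2 was far above its partners and still below each sox10-only library. The pteridine enzyme gene xdh stood at 0.134, 1.34 and 0.284 TPM against 17.3, 52.8 and 17.9 TPM (log2 difference -4.14, SE 0.43, limma adjusted p = 3.63e-05). The gene aox3 stood at 0.335, 13.7 and 0.121 TPM against 317, 479 and 162 TPM (log2 difference -6.70, SE 0.89, limma adjusted p = 8.09e-04). The purine synthesis gene paics stood at 69.3, 92.3 and 82.4 TPM against 690.3, 832 and 366 TPM (log2 difference -2.86, SE 0.46, limma adjusted p = 7.75e-04). The regulator gene pax7b stood at 2.07, 2.74 and 3.78 TPM against 18.5, 37.2 and 20.3 TPM (log2 difference -2.73, SE 0.36, limma adjusted p = 1.87e-04). Of 12 iridophore genes 9 were lower and 0 higher, with a median of -2.47. The gene pnp4a, a purine enzyme of reflective cells, stood at 2.92, 103 and 2.71 TPM against 904, 1334 and 869 TPM (log2 difference -6.47, SE 1.16, limma adjusted p = 0.00644). The iridophore regulator gene tfec stood at 0.0534, 1.04 and 0.102 TPM against 9.13, 25.6 and 21.5 TPM (log2 difference -3.77, SE 0.42, limma adjusted p = 5.02e-05). Within the all-arch group replicate 2 was again the highest for pnp4a and tfec. When only the 36-hpf sox10-only library was kept, gch2, aox3 and pnp4a no longer passed (limma adjusted p 0.142 to 0.278). A call was also lost by paics when the 36-hpf library stood alone and all-arch replicate 2 was left out (limma adjusted p = 0.0650). Of the genes named here, calls were lost by gch2 without sox10-only replicate 2 (limma adjusted p = 0.0511).

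Crest progenitor and glial genes were lower in 16 of 24 tested members and higher in 0, with a median of -2.02. The list holds sox10, whose reporter defined the sort, and without it 15 of 23 were lower, with a median of -1.70. The progenitor factor foxd3 stood at 5.08, 30.3 and 10.8 TPM in all-arch cells and 259, 713 and 789 TPM in sox10-only cells (log2 difference -5.33, SE 0.58, limma adjusted p = 7.20e-05). The glial fatty-acid-binding protein gene fabp7a stood at 53.7, 228 and 70.7 TPM against 2718, 3608 and 2099 TPM (log2 difference -4.83, SE 0.82, limma adjusted p = 0.00227). The gene sox2, a factor of glia, ear and neural tube, stood at 0.763, 43.2 and 9.12 TPM against 112, 623 and 505 TPM (log2 difference -5.15, SE 1.27, limma adjusted p = 0.0325), with replicate 1 the lowest library in each group. The myelin gene mbpb stood at 0.453, 1.08 and 1.07 TPM against 4.40, 4.35 and 5.57 TPM (log2 difference -1.64, SE 0.30, limma adjusted p = 0.00221) and the Schwann cell regulator gene egr2b at 0.298, 1.19 and 0.857 TPM against 8.38, 12.8 and 7.01 TPM (log2 difference -2.54, SE 0.38, limma adjusted p = 4.93e-04). The neurotrophin receptor gene ngfra stood at 3.64, 4.61 and 4.84 TPM against 1.43, 2.58 and 5.06 TPM (log2 difference 0.51, SE 0.37, limma adjusted p = 0.564), while its duplicate ngfrb was lower at 1.03, 1.34 and 1.34 TPM against 7.80, 11.7 and 11.96 TPM (log2 difference -2.34, SE 0.29, limma adjusted p = 1.17e-04). The crest factor tfap2c stood at 3.43, 7.38 and 7.75 TPM against 2.68, 5.49 and 5.28 TPM (log2 difference 0.37, SE 0.42, limma adjusted p = 0.780). With the 36-hpf sox10-only library alone, fabp7a and sox2 lost their calls (limma adjusted p 0.0906 to 0.300). Not every call held under other settings, with losses for fabp7a with the replicate block (limma adjusted p = 0.0559) and sox2 without all-arch replicate 1 or 3 or sox10-only replicate 1, 2 or 3, with a pseudocount of 0.1 or with a minimum mean of 10 TPM (limma adjusted p up to 0.151).

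Of 15 autonomic and enteric neuron genes, 7 were lower and 1 higher. The homeobox gene phox2bb, which specifies autonomic neurons, stood at 16.6, 46.2 and 18.9 TPM in all-arch cells and 378, 356 and 446 TPM in sox10-only cells (log2 difference -3.95, SE 0.41, limma adjusted p = 3.44e-05). The homeobox gene tlx2 stood at 0.335, 0.514 and 0.187 TPM against 5.23, 4.49 and 4.72 TPM (log2 difference -2.12, SE 0.26, limma adjusted p = 1.06e-04). The proneural gene ascl1a stood at 9.11, 45.2 and 9.47 TPM against 207, 394 and 185 TPM (log2 difference -3.87, SE 0.75, limma adjusted p = 0.00564). The transmitter enzyme genes th and dbh were below the minimum for testing. The higher member was the neuropeptide gene npy at 4.51, 3.73 and 3.99 TPM against 0.655, 0.266 and 0.149 TPM (log2 difference 1.92, SE 0.33, limma adjusted p = 0.00129). ascl1a lost its call when the 36-hpf library stood alone for sox10-only cells (limma adjusted p = 0.131). Calls lost under other settings were those of ascl1a with the replicate block (limma adjusted p = 0.0758).

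Sensory and general neuron genes were lower in 20 of 28 tested members and higher in 2, with a median of -3.24. The proneural gene neurog1 stood at 2.41, 24.8 and 6.39 TPM in all-arch cells and 107, 279 and 225 TPM in sox10-only cells (log2 difference -4.45, SE 0.65, limma adjusted p = 7.66e-04). The gene neurod1 stood at 2.76, 20.3 and 5.31 TPM against 260.2, 249.9 and 286 TPM (log2 difference -5.06, SE 0.70, limma adjusted p = 5.84e-04). The RNA-binding protein gene elavl3, a marker of new neurons, stood at 5.10, 22.2 and 9.38 TPM against 139, 194 and 190.1 TPM (log2 difference -3.93, SE 0.46, limma adjusted p = 6.94e-05). The microtubule regulator gene stmn1b stood at 5.81, 31.6 and 12.2 TPM against 318, 341 and 332 TPM (log2 difference -4.53, SE 0.48, limma adjusted p = 3.68e-05). The sensory channel gene p2rx3b stood at 0.0554, 0.489 and 0.0895 TPM against 15.4, 15.9 and 28.6 TPM (log2 difference -4.08, SE 0.35, limma adjusted p = 1.65e-05). For these 5 genes all-arch replicate 2 was the highest of its group and still below every sox10-only library. The LIM homeobox duplicates isl2a and isl2b were called in opposite directions, isl2a higher at 18.9, 26.8 and 42.1 TPM against 6.69, 4.15 and 19.0 TPM (log2 difference 1.64, SE 0.49, limma adjusted p = 0.0408) and isl2b lower at 1.02, 3.68 and 1.30 TPM against 26.6, 28.2 and 35.2 TPM (log2 difference -3.46, SE 0.38, limma adjusted p = 4.45e-05). The other higher member was eya2 at 16.9, 9.74 and 14.4 TPM against 3.96, 3.09 and 4.36 TPM (log2 difference 1.59, SE 0.39, limma adjusted p = 0.0137). The count of higher members was 0 without all-arch replicate 3, without sox10-only replicate 2 and with the 36-hpf library alone. It was 1 without all-arch replicate 1 or 2 or sox10-only replicate 1. Against the 36-hpf sox10-only library alone, isl2a and eya2 did not pass (limma adjusted p 0.234 to 1). Other settings ended the calls of isl2a without all-arch replicate 2 or 3 or sox10-only replicate 1 or 2, with no filter or in the 6-library fit (limma adjusted p up to 0.206) and eya2 without all-arch replicate 1 or 3 or sox10-only replicate 2 (limma adjusted p up to 0.0638).

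The source label of the sox10-only cells names the ear, where the sox10 reporter is known to be active. Of 28 otic genes tested, 17 were lower in all-arch cells and 2 higher, with a median of -2.26. The otolith matrix gene stm (starmaker) stood at 0.640, 1.03 and 0.244 TPM in all-arch cells and 209, 35.1 and 159 TPM in sox10-only cells (log2 difference -6.05, SE 0.56, limma adjusted p = 2.94e-05). The otolith gene otomp stood at 0.394, 1.01 and 0.172 TPM against 136, 15.5 and 123 TPM (log2 difference -5.46, SE 0.69, limma adjusted p = 3.51e-04). The tectorin gene tectb stood at 0.345, 0.0753 and 0.0322 TPM against 17.5, 2.89 and 26.9 TPM (log2 difference -3.47, SE 0.59, limma adjusted p = 0.00224). Sox10-only replicate 2 was the lowest of its group for all 3. The otic homeobox gene hmx2 stood at 1.39, 1.62 and 1.30 TPM against 62.4, 23.6 and 59.1 TPM (log2 difference -4.22, SE 0.39, limma adjusted p = 2.13e-05). The gene pax2a stood at 0.107, 0.501 and 0.309 TPM against 12.2, 5.45 and 13.6 TPM (log2 difference -3.05, SE 0.50, limma adjusted p = 0.00106). The tight junction gene cldna stood at 2.91, 9.79 and 2.68 TPM against 860.5, 208 and 778 TPM (log2 difference -6.59, SE 0.61, limma adjusted p = 3.44e-05), and cldnj at 1.84, 1.16 and 0.372 TPM against 129, 37.1 and 136 TPM (log2 difference -5.43, SE 0.49, limma adjusted p = 1.93e-05). The hair cell factor gene atoh1a stood at 0, 1.31 and 0.504 TPM against 4.02, 12.2 and 13.4 TPM (log2 difference -2.70, SE 0.53, limma adjusted p = 0.00386). The 2 higher members were dlx3b and dlx4b, given above. The count of higher members was 5 with the block, 3 without sox10-only replicate 1 or 3, and 0 with the 36-hpf library alone.

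Epithelial genes were lower in 13 of 28 tested members and higher in 0, with a median of -1.63. The adhesion gene epcam stood at 4.71, 10.9 and 26.8 TPM in all-arch cells and 754, 163 and 689 TPM in sox10-only cells (log2 difference -5.16, SE 0.85, limma adjusted p = 0.00270). The tight junction gene cldnb stood at 9.80, 20.8 and 27.96 TPM against 3879.7, 440.4 and 1435 TPM (log2 difference -6.15, SE 0.77, limma adjusted p = 3.86e-04). The keratin gene krt5 stood at 4.40, 4.46 and 16.5 TPM against 209, 115 and 592 TPM (log2 difference -4.92, SE 0.70, limma adjusted p = 7.70e-04). The epithelial splicing factor gene esrp1 stood at 0.0601, 0.0947 and 0.259 TPM against 2.96, 1.01 and 4.04 TPM (log2 difference -1.59, SE 0.34, limma adjusted p = 0.00610). For epcam, cldnb and krt5 sox10-only replicate 2 was the lowest of its group. Some keratin genes did not pass. The skin keratin gene krt4 stood at 128, 54.1 and 957 TPM against 242, 1414 and 701 TPM (log2 difference -1.72, SE 1.26, limma adjusted p = 0.599), with the groups overlapping, and the basal skin regulator tp63 was below the minimum for testing. The ear vesicle is itself an epithelium, and the part of ear cells in these values was not tested.

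Neural tube and oligodendrocyte genes were lower in 13 of 19 tested members and higher in 0, with a median of -2.29. The lineage factor olig2 stood at 2.57, 9.73 and 3.38 TPM in all-arch cells and 37.0, 112 and 71.3 TPM in sox10-only cells (log2 difference -3.62, SE 0.62, limma adjusted p = 0.00199). The gene olig1 stood at 0, 0 and 0.149 TPM against 5.43, 8.01 and 6.24 TPM (log2 difference -2.84, SE 0.26, limma adjusted p = 2.13e-05). The ventral neural tube gene nkx6.1 stood at 2.56, 6.31 and 2.92 TPM against 85.5, 139 and 101 TPM (log2 difference -4.52, SE 0.37, limma adjusted p = 1.65e-05). The gene nkx2.2a stood at 0.147, 0.610 and 0.533 TPM against 11.98, 23.3 and 10.8 TPM (log2 difference -3.45, SE 0.34, limma adjusted p = 2.60e-05). The inhibitory neuron transporter gene slc32a1 stood at 1.31, 2.001 and 3.71 TPM against 15.7, 16.8 and 18.6 TPM (log2 difference -2.49, SE 0.35, limma adjusted p = 2.88e-04). All 5 were without overlap.

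Pouch endoderm and gut genes were lower in 9 of 15 tested members and higher in 2. The forkhead gene foxa2 stood at 0.181, 0.513 and 0.657 TPM in all-arch cells and 5.03, 9.45 and 39.5 TPM in sox10-only cells (log2 difference -3.25, SE 0.59, limma adjusted p = 0.00300), highest in sox10-only replicate 3. The intestinal fatty-acid-binding protein gene fabp2 stood at 0.135, 0.703 and 0.328 TPM against 29.2, 47.0 and 17.0 TPM (log2 difference -4.44, SE 0.37, limma adjusted p = 1.65e-05). The gene foxi1, also an ear and gill factor, stood at 1.79, 2.296 and 0.310 TPM against 17.9, 8.49 and 16.2 TPM (log2 difference -2.67, SE 0.40, limma adjusted p = 4.15e-04). The higher members were fgf3, given above, and pax9, a factor of pouch endoderm and of arch mesenchyme, at 5.17, 6.01 and 6.46 TPM against 0.255, 0.240 and 0.295 TPM (log2 difference 2.44, SE 0.32, limma adjusted p = 1.76e-04). The count of lower members was 4 without all-arch replicate 1, 5 with a pseudocount of 10 and 6 without all-arch replicate 3. The count of higher members was 1 with the 36-hpf library alone and without each library in turn, apart from all-arch replicate 1, without which it was 2. Of the genes named here, calls were lost by foxa2 with a pseudocount of 10 (limma adjusted p = 0.0584).

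Heart muscle genes were lower in 4 of 11 tested members and higher in 0. The myosin light chain gene cmlc1 stood at 0, 1.61 and 0 TPM in all-arch cells and 70.8, 161 and 43.6 TPM in sox10-only cells (log2 difference -5.87, SE 0.55, limma adjusted p = 3.04e-05). The myosin gene myh6 stood at 0, 0.468 and 0 TPM against 6.45, 24.9 and 13.1 TPM (log2 difference -3.62, SE 0.42, limma adjusted p = 6.37e-05). The natriuretic peptide gene nppb stood at 0.221, 1.25 and 0.535 TPM against 13.3, 29.0 and 15.04 TPM (log2 difference -3.56, SE 0.40, limma adjusted p = 5.71e-05). For cmlc1, myh6 and nppb replicate 2 was the highest library of each group. The fourth lower gene was the myosin light chain gene myl7 at 0.0289, 0.382 and 0 TPM against 9.08, 27.9 and 7.91 TPM (log2 difference -3.61, SE 0.40, limma adjusted p = 5.30e-05). The cardiac factors nkx2.5 and tbx5a were below the minimum for testing. Lens and retina genes were lower in 3 of 15 and higher in 0. The lens gene crybb1 stood at 3.59, 1.91 and 10.8 TPM against 18.4, 32.4 and 99.9 TPM (log2 difference -2.90, SE 0.65, limma adjusted p = 0.0108), highest in replicate 3 of each group. Another lower gene was the crystallin gene cryba1b at 1.97, 1.58 and 7.61 TPM against 8.55, 21.9 and 67.8 TPM (log2 difference -2.61, SE 0.72, limma adjusted p = 0.0377). The count for this list was 7 with the block, 8 with the 36-hpf library alone, 8 without sox10-only replicate 1 and 6 without all-arch replicate 3. Not every call held under other settings, with losses for cryba1b without all-arch replicate 1 or 2 or sox10-only replicate 2 or 3, with a pseudocount of 10, on the deposited scale, with no filter or in the 6-library fit (limma adjusted p up to 0.152).

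Several mural cell genes are also known in arch mesenchyme. Of 10 mural and smooth muscle genes tested, 5 were higher and 1 lower. The T-box gene tbx18 stood at 13.1, 12.6 and 15.9 TPM in all-arch cells and 1.55, 1.88 and 2.11 TPM in sox10-only cells (log2 difference 2.38, SE 0.33, limma adjusted p = 2.48e-04), and the others that were higher were pdgfrb, foxf2a and foxf2b, given above, and the proteoglycan gene cspg4 at 1.998, 2.80 and 2.29 TPM against 0.210, 0.371 and 0.856 TPM (log2 difference 1.202, SE 0.28, limma adjusted p = 0.0101). The smooth muscle actin gene acta2 was below the minimum for testing. The lower member, the smooth muscle gene tagln, stood at 0.0304, 0.115 and 0.0368 TPM against 0.635, 6.19 and 9.34 TPM (log2 difference -2.22, SE 0.55, limma adjusted p = 0.0190). cspg4 did not pass against the 36-hpf library alone (limma adjusted p = 0.337). Calls lost under other settings were those of cspg4 without all-arch replicate 2 (limma adjusted p = 0.0525) and tagln without all-arch replicate 1, 2 or 3 or sox10-only replicate 2, with a pseudocount of 10 or in the 6-library fit (limma adjusted p up to 0.0998).

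Leaving aside fli1a, whose reporter defined the sort, 3 of 27 endothelial genes tested were higher and 0 lower, with a median of 0.16. These were the vascular receptor gene kdrl at 5.95, 7.56 and 7.52 TPM in all-arch cells and 0.296, 0.898 and 0.591 TPM in sox10-only cells (log2 difference 2.34, SE 0.42, limma adjusted p = 0.00168), egfl7 at 4.70, 5.57 and 4.27 TPM against 0.300, 0.912 and 0.643 TPM (log2 difference 1.87, SE 0.43, limma adjusted p = 0.00916) and the apelin receptor gene aplnra at 236, 88.0 and 127 TPM against 21.8, 11.04 and 10.5 TPM (log2 difference 3.25, SE 0.61, limma adjusted p = 0.00325). The vessel cadherin gene cdh5 did not pass at 1.66, 1.31 and 1.80 TPM against 0.0677, 0.121 and 0.107 TPM (log2 difference 1.23, SE 0.48, limma adjusted p = 0.141), although its groups did not overlap, and the vessel adhesion gene pecam1 was near the floor at 0.0332, 0.0439 and 0.338 TPM against 0.0385, 0 and 0.0526 TPM (log2 difference 0.13, SE 0.43, limma adjusted p = 0.946). With the block cdh5 was higher (adjusted p = 0.0368 in limma with the replicate block). Summed levels of the 30 genes found, fli1a included, ran from 202 to 323 TPM in all-arch and 52.3 to 72.9 TPM in sox10-only libraries. Without fli1a and aplnra the sums were 45.7, 70.5 and 89.5 TPM against 28.4, 56.5 and 60.0 TPM, and the groups overlapped. With fli1a counted, 4 were higher, against 7 with the block and in the 6-library fit, 8 after either rescaling or with a pseudocount of 0.1, and 2 with a pseudocount of 10. When only the 36-hpf sox10-only library was kept, egfl7 no longer passed (limma adjusted p = 0.0746). Other settings ended the calls of kdrl with a pseudocount of 10 (limma adjusted p = 0.103) and egfl7 with a pseudocount of 10 (limma adjusted p = 0.228).

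Blood, skeletal muscle and cell cycle lists gave 0 calls in either direction by limma, out of 21, 28 and 40 tested members. At an unadjusted limma p under 0.05 the counts were 0 higher and 0 lower for blood, 0 and 0 for skeletal muscle, and 1 and 0 for the cell cycle. The block called 2 blood genes higher, lyz and mpx, and 1 muscle gene lower, smyd1b. With the 36-hpf library alone 1 muscle gene was lower, myog, and with all-arch replicate 2 also left out 1 blood gene was lower too, cahz. Most red blood cell genes were highest in all-arch replicate 2, as for the globin gene hbbe1.1 at 249.8, 4489 and 518 TPM in all-arch cells and 161, 196 and 659.6 TPM in sox10-only cells (log2 difference 1.60, SE 1.002, limma adjusted p = 0.482). Globin genes are near-identical copies, so their single values are uncertain. The muscle actin gene actc1b stood at 299, 323 and 952 TPM against 305, 912 and 1009 TPM (log2 difference -0.54, SE 0.68, limma adjusted p = 0.820). The replication clamp gene pcna stood at 1417, 1987 and 1766 TPM against 1209, 1241 and 1274 TPM (log2 difference 0.46, SE 0.40, limma adjusted p = 0.670). The mitotic kinase gene cdk1 stood at 140.3, 203 and 230.4 TPM against 131, 159 and 208 TPM (log2 difference 0.20, SE 0.36, limma adjusted p = 0.889). Median-of-ratios rescaling gave 4 and quantile normalization 2 higher cell cycle genes. The cell cycle list leaned higher, with a median log2 difference of 0.39 beside -0.04 over all genes. Of its 40 members, 5 lay above and 0 below without overlap, beside 10.8% and 20.6% of all genes. The count above was thus near the share over all genes. The lowest limma adjusted p over all settings run was 0.0023 for ccnd1 and 0.0339 for pcna, while cdk1 passed under no setting. Many further members also passed under at least 1 setting, such as ccne2, ccnb2 and rrm2 (lowest limma adjusted p 0.0041, 0.0087 and 0.0113). Others passed under none, such as mcm2 and aurkb (lowest limma adjusted p 0.110 and 0.459). The replicate block on 9 libraries called 0 members. A small cell cycle difference is therefore not excluded by the 0 calls.

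Immediate-early and stress genes, which can respond to cell handling, were higher in 3 of 38 tested members and lower in 3, beside 3.40% and 10.02% over all genes. The gene fosab stood at 11409, 7076 and 12646 TPM in all-arch cells and 8679.7, 4177 and 9629 TPM in sox10-only cells (log2 difference 0.52, SE 0.57, limma adjusted p = 0.777) and junba at 5148, 3069 and 3789 TPM against 4996, 2371 and 3151 TPM (log2 difference 0.23, SE 0.54, limma adjusted p = 0.925), very high in all 6 libraries. The shear-responsive factor klf2a stood at 146, 155 and 129 TPM against 11.6, 10.8 and 10.5 TPM (log2 difference 3.59, SE 0.39, limma adjusted p = 4.72e-05). The phosphatase gene dusp1 stood at 1196, 859.9 and 1327 TPM against 371, 233 and 423 TPM (log2 difference 1.74, SE 0.49, limma adjusted p = 0.0304). Lower members included egr3 at 10.2, 24.9 and 22.7 TPM against 79.2, 140.5 and 127 TPM (log2 difference -2.58, SE 0.47, limma adjusted p = 0.00208) and the small heat-shock gene hspb8 at 1.12, 1.66 and 1.49 TPM against 5.81, 9.98 and 9.95 TPM (log2 difference -1.96, SE 0.35, limma adjusted p = 0.00162). The other called members were klf2b, higher, and gadd45ba, lower. The block gave 5 higher and 6 lower. The higher count was 1 without all-arch replicate 1 or 3, without sox10-only replicate 2 and with the 36-hpf library alone, and the lower count was 5 without all-arch replicate 2. With the 36-hpf sox10-only library alone, dusp1, klf2b and gadd45ba lost their calls (limma adjusted p 0.218 to 0.835). Of the genes named here, calls were lost by dusp1 without all-arch replicate 1 or 3 or sox10-only replicate 2 or with no filter (limma adjusted p up to 0.152), klf2b without all-arch replicate 1, 2 or 3 or sox10-only replicate 1 or 2, with a pseudocount of 10, on the deposited scale, with no filter or in the 6-library fit (limma adjusted p up to 0.129) and gadd45ba without all-arch replicate 1 (limma adjusted p = 0.0756).

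Hox genes record position along the body axis, with low paralogue numbers in the hindbrain and posterior arches and high numbers in the trunk and tail. Of 34 tested genes of paralogue groups 5 to 13, 25 were lower in all-arch cells and 0 higher, with a median of -3.04. The gene hoxb8a stood at 4.83, 11.05 and 7.34 TPM in all-arch cells and 274, 239.9 and 270.0 TPM in sox10-only cells (log2 difference -4.97, SE 0.39, limma adjusted p = 1.65e-05). The gene hoxb7a stood at 0.466, 5.29 and 1.07 TPM against 89.7, 138 and 133 TPM (log2 difference -5.48, SE 0.54, limma adjusted p = 3.33e-05). The gene hoxd9a stood at 0.393, 2.98 and 2.38 TPM against 161, 48.8 and 153 TPM (log2 difference -5.34, SE 0.54, limma adjusted p = 3.46e-05). The more posterior gene hoxb10a stood at 0.783, 1.32 and 0.211 TPM against 75.6, 39.2 and 131 TPM (log2 difference -5.44, SE 0.62, limma adjusted p = 1.13e-04). The gene hoxd10a stood at 0.669, 0.904 and 1.04 TPM against 30.8, 21.9 and 40.0 TPM (log2 difference -4.06, SE 0.38, limma adjusted p = 2.21e-05). No all-arch library overlapped a sox10-only library for these 5 genes. Group 5 genes were mixed. The gene hoxc5a was lower at 2.04, 2.77 and 2.62 TPM against 9.31, 22.7 and 20.4 TPM (log2 difference -2.33, SE 0.40, limma adjusted p = 0.00135), while hoxb5a stood at 31.8, 21.0 and 61.6 TPM against 19.6, 21.3 and 35.1 TPM (log2 difference 0.48, SE 0.47, limma adjusted p = 0.727). The gene hoxa5a stood at 8.78, 7.45 and 30.7 TPM against 1.76, 10.4 and 7.84 TPM (log2 difference 1.08, SE 0.67, limma adjusted p = 0.467), neither passing.

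Genes of paralogue groups 1 to 4 were mixed, with 3 of 13 tested genes higher and 4 lower. The gene hoxa2b, which gives the second arch its identity, stood at 166, 204 and 195 TPM in all-arch cells and 23.8, 34.0 and 22.2 TPM in sox10-only cells (log2 difference 2.79, SE 0.35, limma adjusted p = 1.24e-04). The gene hoxb2a stood at 99.1, 161 and 123 TPM against 35.1, 51.8 and 39.7 TPM (log2 difference 1.57, SE 0.34, limma adjusted p = 0.00636). The group 3 genes hoxb3a and hoxa3a did not pass, at 10.3, 11.5 and 16.9 TPM against 15.15, 12.1 and 15.5 TPM (log2 difference -0.15, SE 0.33, limma adjusted p = 0.915) and 9.73, 10.1 and 15.4 TPM against 7.64, 15.7 and 15.4 TPM (log2 difference -0.09, SE 0.39, limma adjusted p = 0.961). The clearest lower gene was hoxc3a at 0.425, 0.567 and 0.811 TPM against 4.38, 8.29 and 8.83 TPM (log2 difference -2.31, SE 0.31, limma adjusted p = 2.20e-04). Duplicates hoxb1a and hoxb1b were called in opposite directions, hoxb1a higher at 2.92, 7.04 and 11.8 TPM against 0.117, 1.42 and 2.39 TPM (log2 difference 1.82, SE 0.49, limma adjusted p = 0.0237) and hoxb1b lower at 11.7, 17.1 and 21.97 TPM against 38.5, 45.6 and 52.8 TPM (log2 difference -1.41, SE 0.35, limma adjusted p = 0.0144). The other lower genes were hoxd3a and hoxc1a. The count of lower genes was 1 without all-arch replicate 2 or sox10-only replicate 3, 2 without all-arch replicate 1 or sox10-only replicate 2, and 2 with the 36-hpf library alone, where 1 was higher, and 1 with all-arch replicate 2 also left out. hoxb2a, hoxb1a, hoxb1b and hoxc1a lost their calls when the 36-hpf library stood alone for sox10-only cells (limma adjusted p 0.134 to 0.408). The combination of the 36-hpf library alone and no all-arch replicate 2 ended the call for hoxd3a (limma adjusted p = 0.102). Not every call held under other settings, with losses for hoxb1a without all-arch replicate 2 or 3 or sox10-only replicate 1, with a pseudocount of 0.1, with no filter or in the 6-library fit (limma adjusted p up to 0.0948), hoxb1b without all-arch replicate 1 or 2 or sox10-only replicate 2 or 3 (limma adjusted p up to 0.0915), hoxd3a without all-arch replicate 2 or sox10-only replicate 3 (limma adjusted p up to 0.0600) and hoxc1a without all-arch replicate 1 or 2 or sox10-only replicate 1, 2 or 3, with a pseudocount of 0.1, after quantile normalization or in the 6-library fit (limma adjusted p up to 0.238).

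Zebrafish kept many genes in duplicate after a whole-genome duplication in teleost ancestors, and such copies are often named a and b. Pairs were matched here by symbols that differ only in a final a or b, and their origin was not checked. Separate genes with such symbols, for example aurka and aurkb, were therefore counted too. Both genes of a pair are called copies below by symbol alone. Of 1138 such pairs with both copies tested, 27 had both higher, 53 both lower, 220 had 1 called, 827 neither, and 11 were called in opposite directions. With 3.40% of all genes called higher and 10.02% lower, unrelated genes paired at random would also give some opposite pairs. That number was not computed, so no excess of opposite pairs is claimed. In 3 of those 11 pairs both calls held with each library left out in turn. These were ednraa and ednrab, fgf20a and fgf20b, and the growth-arrest genes gadd45aa and gadd45ab. The gene gadd45aa was lower at 1.96, 1.36 and 2.16 TPM in all-arch cells and 23.9, 30.1 and 19.2 TPM in sox10-only cells (log2 difference -3.16, SE 0.36, limma adjusted p = 6.60e-05), and gadd45ab higher at 19.4, 92.9 and 27.4 TPM against 5.76, 7.14 and 6.51 TPM (log2 difference 2.35, SE 0.50, limma adjusted p = 0.00535). The signalling scaffold gene akap12a was lower at 0.136, 1.53 and 0.165 TPM against 5.45, 32.6 and 20.5 TPM (log2 difference -3.48, SE 0.54, limma adjusted p = 9.85e-04), and akap12b higher at 109, 108 and 167 TPM against 17.3, 52.8 and 43.6 TPM (log2 difference 1.84, SE 0.49, limma adjusted p = 0.0222). The small GTPase gene rasl11a was higher at 210.0, 153 and 190.0 TPM against 31.5, 16.02 and 20.5 TPM (log2 difference 3.01, SE 0.45, limma adjusted p = 4.14e-04), and rasl11b lower at 17.5, 10.03 and 12.2 TPM against 46.5, 32.9 and 54.4 TPM (log2 difference -1.68, SE 0.47, limma adjusted p = 0.0288). In each of these 3 pairs the groups did not overlap for either copy. The remaining opposite pairs were those of bmp2, hoxb1, isl2 and ntn1, given above, and the pairs lrata with lratb and pmp22a with pmp22b. Against the 36-hpf sox10-only library alone, akap12b, rasl11b, lrata, lratb, pmp22a and pmp22b did not pass (limma adjusted p 0.0579 to 0.607). With the 36-hpf library alone and all-arch replicate 2 left out, gadd45ab did not pass (limma adjusted p = 0.261). Calls lost under other settings were those of akap12b without all-arch replicate 3 or sox10-only replicate 1 or with no filter (limma adjusted p up to 0.0920), rasl11b without all-arch replicate 2 or 3 or sox10-only replicate 1 or 3, with a pseudocount of 0.1 or with no filter (limma adjusted p up to 0.104), fgf20a in the 6-library fit (limma adjusted p = 0.0577), lrata without all-arch replicate 1 or 2 or sox10-only replicate 2 or 3 (limma adjusted p up to 0.0669), lratb without all-arch replicate 1 or 3 or sox10-only replicate 2 or 3 or with no filter (limma adjusted p up to 0.0689), pmp22a without all-arch replicate 1, 2 or 3 or sox10-only replicate 1, 2 or 3, with a pseudocount of 10, on the deposited scale or with a minimum mean of 10 TPM (limma adjusted p up to 0.187) and pmp22b without sox10-only replicate 2 (limma adjusted p = 0.0570).

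**Figure D5:**
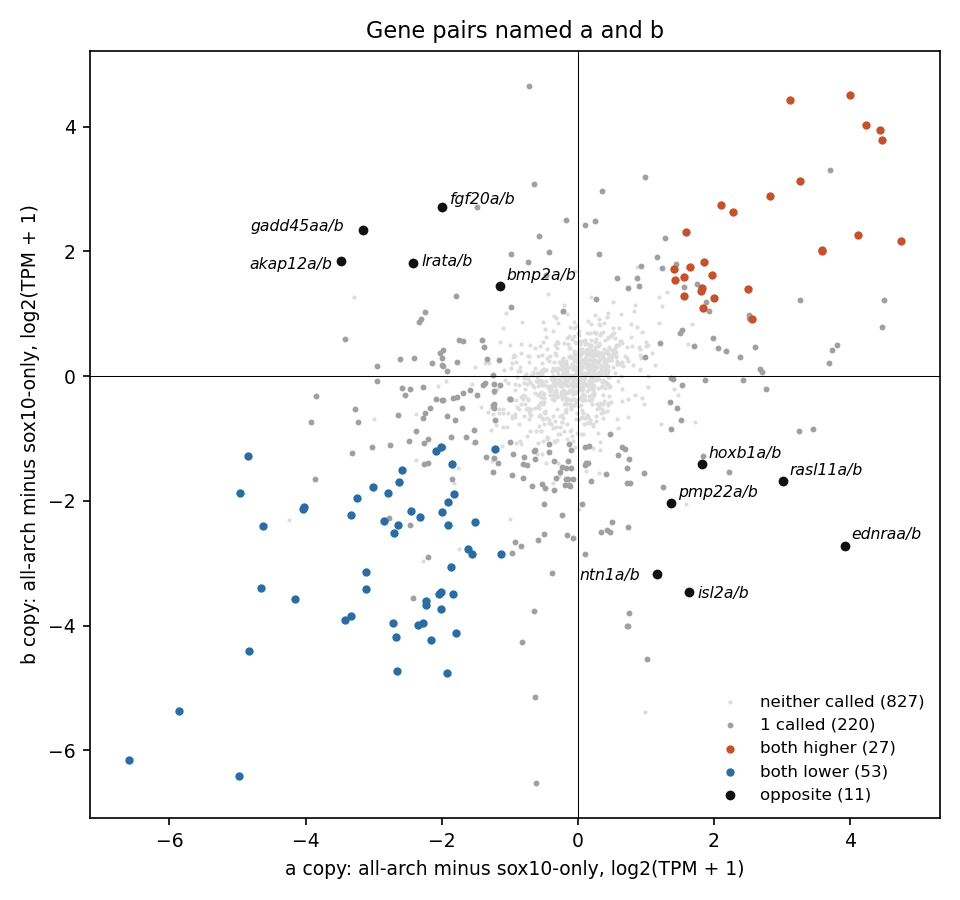
Log2 difference of the gene named a (horizontal) against that of the gene named b (vertical), for pairs matched by symbol with both genes tested. Opposite calls are labelled. Pairs called in the same direction lie in the lower left (53 lower) and upper right (27 higher), and the 11 opposite pairs lie in the other 2 quadrants, ednra farthest to the right.

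The sox10-only libraries were then set against each other by stage label, with 1 library each and no test. The melanin enzyme gene tyrp1b was lower with each later label, at 343, 146 and 79.2 TPM in the libraries labelled 20, 28 and 36 hpf, and dct at 106, 52.7 and 34.2 TPM, again in label order. The melanin enzyme gene tyr, given above, was lowest in the library labelled 20 hpf. Collagen genes of cartilage and notochord stood highest in the library labelled 36 hpf, with col2a1a at 173, 157 and 6789.6 TPM and col8a1a at 8.16, 1.66 and 319.6 TPM. Crystallin genes of the lens were high there too, as crygm2d2 at 1.78, 0 and 111 TPM, and since these genes are near-identical copies the single value is uncertain. Replicate 3 was also the highest all-arch library for col2a1a, col8a1a and crygm2d2, with no difference in stage label. All-arch values were 29.3, 57.0 and 114 TPM for col2a1a and 0.0186, 0.300 and 0.520 TPM for col8a1a. For crygm2d2 they were 0.656, 0.827 and 10.7 TPM. The part of the stage label in these differences was not tested. Further differences ran with the replicate number in both groups. The collagen-processing gene p4hb stood at 164, 8.201 and 21.4 TPM against 129.7, 5.59 and 28.3 TPM, and the ribosomal gene rpl6 at 712, 185 and 193 TPM against 844, 205 and 197 TPM, highest in replicate 1 of each group. The polycomb gene cbx7a stood at 9.41, 239 and 8.31 TPM against 9.81, 120.2 and 6.89 TPM, highest in replicate 2 of each group. All-arch replicates carry the same 36-hpf label.

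Genes outside the lists also reached large differences. Among the 20 largest in each direction, the surface protein gene cd248b of mesenchymal cells stood at 1943, 1644 and 2265 TPM in all-arch cells and 67.3, 99.3 and 106 TPM in sox10-only cells (log2 difference 4.42, SE 0.40, limma adjusted p = 1.93e-05). The tight junction gene cldn11a stood at 227, 179.5 and 312 TPM against 5.18, 11.7 and 13.9 TPM (log2 difference 4.47, SE 0.43, limma adjusted p = 2.33e-05). The thrombin receptor gene f2r stood at 28.2, 201 and 72.4 TPM against 0.139, 5.58 and 4.17 TPM (log2 difference 4.48, SE 0.81, limma adjusted p = 0.00443), with a wide spread between replicates of both groups. On the lower side the aldo-keto reductase gene akr1b1 stood at 2.27, 47.3 and 1.86 TPM against 1544, 1839 and 579 TPM (log2 difference -7.27, SE 1.004, limma adjusted p = 0.00129). The pteridine enzyme gene sprb stood at 0.393, 16.6 and 0.106 TPM against 180.3, 594 and 195 TPM (log2 difference -6.52, SE 0.98, limma adjusted p = 0.00206). The gene apoda.1, an apolipoprotein D relative, stood at 4.43, 101 and 5.58 TPM against 965, 1579 and 1218 TPM (log2 difference -6.32, SE 0.99, limma adjusted p = 0.00262). For akr1b1, sprb and apoda.1 all-arch replicate 2 was the highest of its group, as it was for the pigment genes above. The gene guca2b, a guanylin-type peptide gene, stood at 0.862, 1.22 and 0 TPM against 271, 78.6 and 422 TPM (log2 difference -7.03, SE 0.58, limma adjusted p = 1.94e-05), and CLDN22, a claudin, at 1.02, 4.51 and 3.72 TPM against 633, 127 and 418 TPM (log2 difference -6.43, SE 0.59, limma adjusted p = 2.94e-05), both lowest in replicate 2 among the sox10-only libraries. akr1b1, sprb and apoda.1 did not pass against the 36-hpf library alone (limma adjusted p 0.153 to 0.175).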

How the data were processed

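RNA was extracted with a column kit for small samples and amplified as full-length cDNA before library preparation and paired-end sequencing on 2 kinds of instrument, per the labels' protocols. The authors' deposited table gives TPM per gene, from an alignment with TopHat2 to GRCz10 and quantification in Partek, per the submitters' processing notes. Tool versions, strand and the instrument of each library were not given in the sources used here. With no counts, depth was unknown. Deposited columns averaged 93168.2 in total and were multiplied by 10.7333 to sum to 1000000.

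The 14270 genes with a mean of at least 1 TPM over 9 wild-type libraries were tested by limma 3.58.1 (R 4.3.3) on the log2(TPM + 1) scale, with a trended, robust spread and Benjamini-Hochberg adjustment at 0.05. Replicate numbers paired the libraries: deviations from the group means correlated at 0.739, 0.497 and 0.55 for same-numbered pairs, so a fit with the replicate block was run beside the main one. The main fit left that pairing out, so spread shared by same-numbered libraries stayed in its errors. A gene that did not pass there may pass with the block. In simulated data 67, 67 and 66 genes were changed by a log2 of 1, 2 and 4. The test called 3.0%, 49.3% and 83.3% of them, and 3 of 14070 unchanged genes. Far fewer genes were changed there than the 1915 called in the data. The Benjamini-Hochberg adjustment depends on that share. The simulated noise was also drawn independently for each library, without the spread that same-numbered libraries shared. For both reasons these rates may not carry over. The groups and the 36 gene lists were chosen with earlier results of these data known. The text named members of those lists and of duplicate pairs, and outside them the 20 called genes with the largest difference in each direction whose libraries did not overlap and whose higher group averaged at least 10 TPM, the a and b copies called in opposite directions, the 10 genes most particular to each library or most apart between sox10-only replicates 1 and 3 with at least 50 TPM, and the reporters' genes. Alternatives changed the pseudocount, filter, scaling, libraries and block. Some members counted in the lists are not reported here by name.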

Additional observations from a re-analysis of the deposited data

How the results depend on the processing

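Against 485 genes higher and 1430 lower in all-arch cells, tests on fewer genes gave fewer calls: 223 and 413 with the deposited scale, where the minimum kept 5959 genes, and 224 and 422 with a minimum mean of 10 TPM, which kept 6205. Without a filter, 26839 genes gave 2460 lower calls. Rescaling raised the higher count to 959 (median of ratios) and 1324 (quantile). The cause was not tested. The replicate block gave 855 higher genes, and with the block and 6 libraries alone there were 1847 higher and 3176 lower. The sox10-only library labelled 36 hpf alone gave 212 higher genes, with fewer samples, and 207 when all-arch replicate 2 was also left out, an alternative chosen after seeing the data. Leaving out each of the 6 libraries gave 348 to 484 higher and 1087 to 1554 lower genes. Under each alternative run, more genes were lower than higher. Of 216 called genes named in the text, 176 held whichever library was left out, 151 with the 36-hpf library alone and 214 with the replicate block. The block on 9 libraries ended the calls of fabp7a and ascl1a, called 14 of the 55 named genes that had not passed, each given in the text, and changed no other call among the genes named. With the block and 6 libraries alone, 23 of those 55 were called. Median-of-ratios rescaling called 8 and quantile normalization 11 of them. Not all of these calls are given in the text. For example dlx5a, jag1b and fosab, reported above as not passing, each passed under at least 1 setting. No named gene with a call changed sign under any alternative. Most differences of a log2 of 1 were missed in the simulation, whose rates may not carry over to these data. Without counts the precision of low genes is unknown.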
